A study of Mus musculus with 8 samples.

Results

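CAF-1 OFF cells were set directly against HOXA9 OFF cells, to ask which lineage and functional programs separate both routes out of self-renewal. This comparison used 2 libraries of each condition, 4 of the 8 RNA sequencing libraries of the series, chosen by their labels. All libraries came from mouse iGMPs, granulocyte-macrophage progenitors of C57Bl/6 origin held in self-renewal by HOXA9 joined to the hormone-binding part of an estrogen receptor with the G400V change. The cells carry a GFP reporter under the lysozyme promoter and grow in stem cell factor from conditioned hamster cell medium. CAF-1 OFF cells were given 500 µM IPTG for 48 h, which induced a short hairpin RNA against Chaf1b, and stayed in 150 ng/ml estradiol, so that the HOXA9 fusion remained active. HOXA9 OFF cells were washed and kept for 48 h without estradiol and without IPTG. The reference groups were uninduced cells, with 2 libraries taken at 0 h in estradiol, and IPTG-treated control cells, with 2 libraries taken after 48 h with IPTG. The control cells were in 150 ng/ml estradiol too, and the labels do not give their IPTG dose. By the study's methods these control cells carry a vector with a control sequence in place of the hairpin. The iGMPs are clonal lines with an integrated transgene. By the study's supplement, RNA tracks of independent sub-clones were looked at, but the labels tie no library to a sub-clone and give no meaning to the replicate number, so the spread between libraries may be technical. CAF-1 OFF cells had both IPTG and estradiol and HOXA9 OFF cells had neither. Effects of estradiol itself and of HOXA9 inactivation cannot be told apart, while IPTG without the hairpin was measured in the IPTG-treated controls.

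CAF-1 is the chaperone that deposits histones H3 and H4 behind the replication fork, and Chaf1b encodes one of its subunits. HOXA9 is a homeobox transcription factor that blocks myeloid progenitors from maturing. When a granulocyte-macrophage progenitor matures along the neutrophil path it makes granule proteins in waves. Those of the primary granules, such as myeloperoxidase, come first. Those of the secondary and tertiary granules, such as lactoferrin and gelatinase, follow, and last come the proteins of the mobile cell, such as formyl peptide and chemokine receptors. C/EBP factors drive the later waves, interferon response factors drive antiviral and oxidase genes, and ATF4 drives amino acid uptake and synthesis. Maturing myeloid cells also lose stem cell genes, ribosome production and cell division.

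Chaf1b was examined first in every library. It was at 96.8 and 100.3 CPM (counts scaled to library size after TMM normalisation, per 1000000) in uninduced libraries and 95.1 and 102 CPM in IPTG-treated controls. With CAF-1 OFF it was at 18.7 and 9.72 CPM and with HOXA9 OFF at 48.3 and 41.0 CPM. Both treatments therefore had less Chaf1b RNA than uninduced cells, and CAF-1 OFF libraries had the least, below both HOXA9 OFF libraries (log2 ratio -1.65, SE 0.26, edgeR FDR 0.00145). Here and below the log2 ratio is the fitted log2 fold change of CAF-1 OFF over HOXA9 OFF cells, with its standard error (SE), and FDR is the Benjamini-Hochberg value of edgeR's quasi-likelihood test. Hoxa9, whose counts cannot separate the fusion gene from the endogenous gene, was at 261 and 250.7 CPM with CAF-1 OFF and 481 and 449.7 CPM in HOXA9 OFF libraries. By the study's supplement, RNA tracks lacked reads over the untranslated ends of Hoxa9, which the study reads as expression of the fusion gene alone. Chaf1a, of the same complex, was at 105 and 104 CPM with CAF-1 OFF and at 88.8 and 64.8 CPM with HOXA9 OFF (log2 ratio 0.44, edgeR FDR 0.0482), which is under the 1.5-fold limit of a call. The call was reached with library size as the only scaling (0.68) and without HOXA9 OFF replicate 1 (0.68).

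The libraries held from 14044284 to 22423837 counts on genes. A level of 3 counts was taken as the floor, which was from 0.149 to 0.163 CPM in the 4 libraries compared and covers counting error only. Replicates of HOXA9 OFF cells differed more than those of other groups, with a chi-square per degree of freedom of 78.2 against 16.6 in CAF-1 OFF cells. Some macrophage genes were far higher in HOXA9 OFF replicate 2 than in replicate 1, such as Gpnmb, a glycoprotein of phagocytes, at 78.8 and 2792 CPM in replicates 1 and 2. Others were close in both, such as Emr1, the macrophage antigen F4/80, at 494 and 437 CPM. The median log2 ratio of replicate 2 to replicate 1 over the monocyte and macrophage list was 0.80. Over the secondary and tertiary granule list that median was -0.48 and over the neutrophil maturation list -0.62. In CAF-1 OFF cells replicate 2 was the higher one for all 3 lists, with medians of 0.93, 0.67 and 0.75. Without HOXA9 OFF replicate 2 the median log2 ratio of the monocyte and macrophage list in the direct comparison was -0.46 in place of -1.58.

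A gene was called when it passed an FDR of 0.05 and changed by at least 1.5-fold. Of the 13080 genes tested, 43.5% were called between CAF-1 OFF and HOXA9 OFF cells, 22.2% higher and 21.4% lower with CAF-1 OFF. In 78.2% both libraries of one condition lay above both of the other (40.8% with CAF-1 OFF above, 37.4% below). Against uninduced cells 10.5% of genes were higher and 3.5% lower with CAF-1 OFF, and 25.2% were higher and 22.1% lower in HOXA9 OFF cells. These last comparisons share the uninduced libraries, so their values are set side by side and not tested against each other. Between IPTG-treated control and uninduced cells edgeR called 0.0%, and 100 genes had an unadjusted p under 0.05. Genes were read through 38 lists of lineage and functional programs holding 1101 distinct measured genes, of which 924 passed the filter on low counts and 513 were called in the direct comparison.

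**Figure D1:**
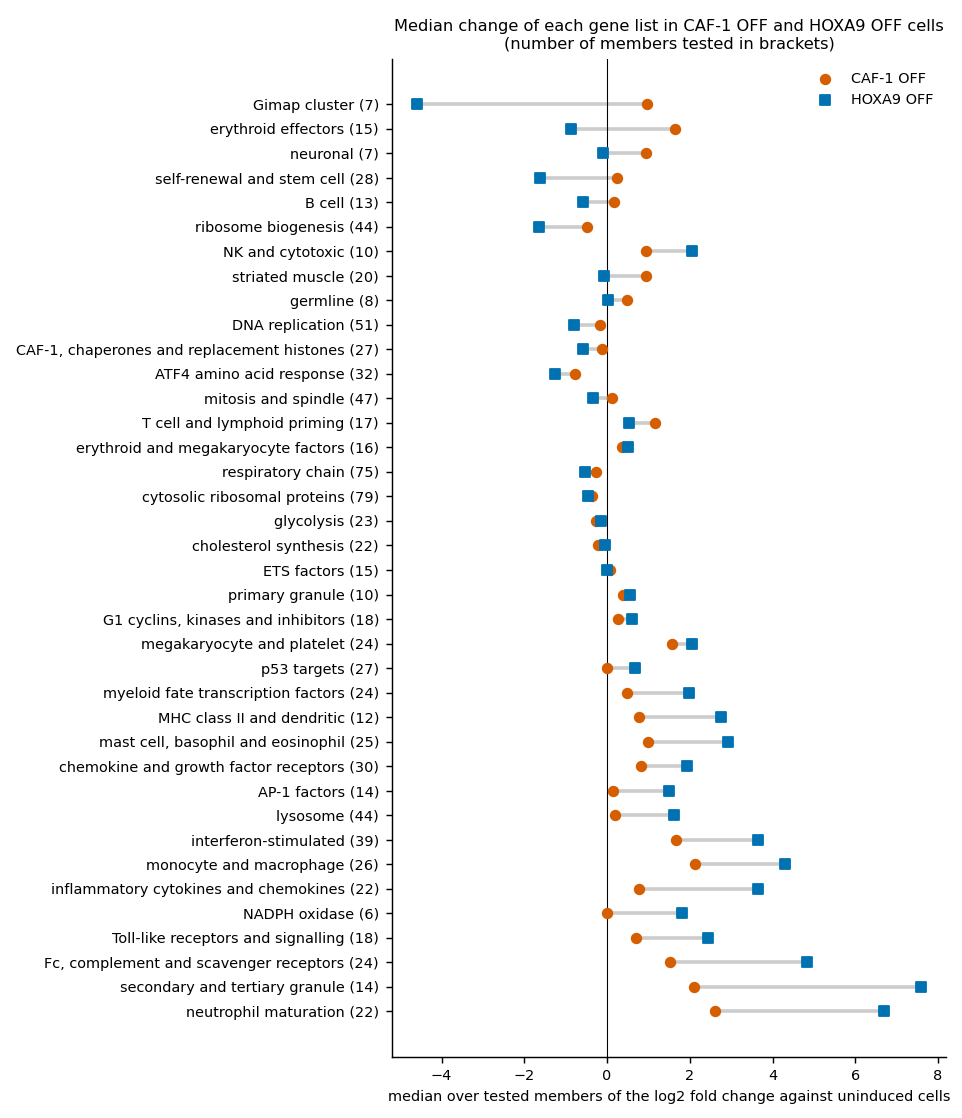
Median log2 ratio against uninduced cells of the tested members of each of 38 gene lists, in CAF-1 OFF cells (circles) and HOXA9 OFF cells (squares), sorted by the median of the direct comparison. Values share the uninduced libraries, and lists at low counts hold fitted values that depend on the prior count. The bottom list, neutrophil maturation, lies to the right of 0 in both conditions and farther right in HOXA9 OFF cells (2.62 against 6.70). The Gimap list lies to the right of 0 in CAF-1 OFF cells and to the left in HOXA9 OFF cells (0.97 against -4.60).

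Promoter letters of 6 genes that the results turn on are shown first, 5′ to 3′ on the strand of the gene, because each belongs to a list with a factor of known recognition sequence. The letters are from RefSeq (GRCm38.p6) and were placed on mm9, the build of the counts, by an exact match, and only bases before the RefSeq start and outside exons are printed. Capitals mark matches to the letters TTGCNNAA (C/EBP) in Ltf, Ngp and Lcn2, GAAANNGAAA (interferon response) in Isg15 and Cybb, and TTGCATCA (ATF4) in Slc7a11, on either strand, and other motifs are not marked. Distances of matches are counted from the RefSeq start, whereas gene spans are those of GENCODE on mm9, and in Ngp, Lcn2 and Cybb the RefSeq start lies inside the GENCODE span.
Ltf, chr9:110921546-110921795, + strand: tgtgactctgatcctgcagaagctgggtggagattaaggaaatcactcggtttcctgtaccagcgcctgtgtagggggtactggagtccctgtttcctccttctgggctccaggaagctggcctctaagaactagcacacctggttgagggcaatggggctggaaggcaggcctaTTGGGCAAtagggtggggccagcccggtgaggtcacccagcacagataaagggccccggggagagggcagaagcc
Ngp, chr9:110322062-110322253, + strand: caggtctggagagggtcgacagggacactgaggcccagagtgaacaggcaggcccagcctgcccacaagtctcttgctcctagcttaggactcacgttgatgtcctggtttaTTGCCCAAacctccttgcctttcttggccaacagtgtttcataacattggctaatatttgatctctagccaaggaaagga
Lcn2, chr2:32243318-32243509, - strand: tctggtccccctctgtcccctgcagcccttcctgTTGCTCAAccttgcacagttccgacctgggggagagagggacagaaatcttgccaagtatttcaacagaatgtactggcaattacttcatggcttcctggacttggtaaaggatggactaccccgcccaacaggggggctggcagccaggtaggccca
Isg15, chr4:155574928-155575177, - strand: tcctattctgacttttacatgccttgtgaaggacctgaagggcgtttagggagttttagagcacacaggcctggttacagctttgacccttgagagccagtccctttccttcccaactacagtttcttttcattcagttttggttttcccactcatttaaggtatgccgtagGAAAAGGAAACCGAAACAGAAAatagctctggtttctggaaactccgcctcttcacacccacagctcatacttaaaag
Cybb, chrX:9046451-9046700, - strand: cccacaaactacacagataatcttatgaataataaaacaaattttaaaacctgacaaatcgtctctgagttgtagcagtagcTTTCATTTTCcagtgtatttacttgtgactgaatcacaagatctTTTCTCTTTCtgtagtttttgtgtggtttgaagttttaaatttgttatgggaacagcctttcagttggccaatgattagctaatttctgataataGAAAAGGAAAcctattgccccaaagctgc
Slc7a11, chr3:50247536-50247785, - strand: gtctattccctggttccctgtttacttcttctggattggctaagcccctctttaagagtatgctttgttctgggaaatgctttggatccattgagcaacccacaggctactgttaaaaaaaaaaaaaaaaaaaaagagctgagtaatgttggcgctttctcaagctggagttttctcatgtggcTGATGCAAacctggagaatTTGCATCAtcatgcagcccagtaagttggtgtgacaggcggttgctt
In Isg15 the capitals are 3 overlapping matches, and in Cybb and Slc7a11 the matches are apart. The table of promoters, from 250 bases before to 50 bases after the start, held a promoter for 8905 of the 13080 tested genes. The C/EBP letters were in 45.5% of secondary and tertiary granule promoters and 27.8% of neutrophil maturation promoters (5 of 11 and 5 of 18), against 8.77% over tested genes and 10.8% over the whole table. The GATA motif, spelled AGATAA on either strand, was found in 2 of 11 and 5 of 18 of the same promoters (18.2% and 27.8%), against 6.73% and 11.2%. The interferon response letters were in 59.4% of interferon-stimulated promoters, against 3.23% over tested genes and 3.44% over the table, and the ATF4 letters in 7 of 28 promoters of the ATF4 list, against 0.641% and 0.895%. The C/EBP letters were in 7.89% of promoters of genes higher in CAF-1 OFF cells and in 10.2% of those lower, and the interferon response letters in 2.68% and 4.58%. In the same order, the GATA motif was in 7.21% and 6.77% and the ATF4 letters in 0.721% and 0.87%. A match is a stretch of letters, not a measured binding site.

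Nearly all secondary and tertiary granule genes and late neutrophil genes were higher in HOXA9 OFF cells, whereas primary granule genes were called on either side at close to the shares over all tested genes (22.2% higher and 21.4% lower). Of 10 primary granule genes tested, 2 were higher and 3 lower with CAF-1 OFF (median log2 ratio -0.18, which turned to 0.06 with library size as the only scaling and to 0.12 without HOXA9 OFF replicate 1, and was -0.44 without HOXA9 OFF replicate 2). Of 14 secondary and tertiary granule genes tested, 1 was higher and 13 were lower (median -4.15), and of 22 neutrophil maturation genes 0 were higher and 19 lower (median -4.47), beside a median of 0.04 over all tested genes. Since these are bulk libraries, fewer cells making a protein and less RNA per cell cannot be told apart.

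Mpo, myeloperoxidase of the primary granule, had 7749 and 7807 CPM with CAF-1 OFF against 3625 and 2559 CPM with HOXA9 OFF (log2 ratio 1.33, SE 0.29, edgeR FDR 0.00566). Ctsg, the serine protease cathepsin G, held 2869 and 2915 CPM in CAF-1 OFF and 918 and 752 CPM in HOXA9 OFF libraries (log2 ratio 1.79, SE 0.15, edgeR FDR 9.42e-05). For both, each CAF-1 OFF library lay above each HOXA9 OFF library. Elane, neutrophil elastase, was at 823 and 1379 CPM with CAF-1 OFF and at 738 and 432 CPM with HOXA9 OFF, which missed the threshold (edgeR FDR 0.095). It passed with library size as the only scaling, with no filter, with the replicate block and without HOXA9 OFF replicate 1, at log2 ratios from 0.91 to 1.34. Prtn3, proteinase 3, had 1092 and 1210.0 CPM with CAF-1 OFF against 1821 and 1410.2 CPM with HOXA9 OFF (edgeR FDR 0.13). Ms4a3, a membrane protein of granulocyte-macrophage progenitors, held 466 and 479.8 CPM in CAF-1 OFF and 687 and 414 CPM in HOXA9 OFF libraries (edgeR FDR 0.569). Neither passed. The primary granule genes on the other side were Ctsc, Prss57 and Fcnb. Ctsc, cathepsin C, which activates the granule proteases, was at 169 and 198 CPM with CAF-1 OFF and at 463 and 436 CPM with HOXA9 OFF (log2 ratio -1.29, SE 0.12, edgeR FDR 0.00011). Prss57, a further granule serine protease, had 52.4 and 43.0 CPM with CAF-1 OFF against 119 and 91.2 CPM with HOXA9 OFF (log2 ratio -1.14, SE 0.16, edgeR FDR 0.000903). Fcnb, ficolin B, held 119.6 and 149.7 CPM in CAF-1 OFF and 527 and 250.1 CPM in HOXA9 OFF libraries (log2 ratio -1.53, SE 0.37, edgeR FDR 0.0102). Its size moved to -0.90 without HOXA9 OFF replicate 1, and the call was lost without CAF-1 OFF replicate 1 (-1.38).

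Ltf, lactoferrin, was at 0.474 and 0.523 CPM with CAF-1 OFF and at 1440.4 and 969 CPM with HOXA9 OFF (log2 ratio -11.22, SE 0.36, edgeR FDR 1.34e-05). The gene lies on chromosome 9, 110921796 to 110945270 in mm9, and its promoter holds the C/EBP letters 75 bases before the RefSeq start. Ngp, neutrophilic granule protein, had 5.74 and 3.40 CPM with CAF-1 OFF against 1186 and 988 CPM with HOXA9 OFF (log2 ratio -7.89, SE 0.32, edgeR FDR 1.34e-05). It lies on chromosome 9, 110322254 to 110325514, with the letters 138 bases before the RefSeq start, which lies inside this span. A further match, 11 bases before that start, lies past the end of the printed stretch. Lcn2, lipocalin 2, which binds bacterial siderophores, held 126 and 182 CPM in CAF-1 OFF and 1317 and 868 CPM in HOXA9 OFF libraries (log2 ratio -2.82, SE 0.34, edgeR FDR 0.00039), with the letters 216 bases before the RefSeq start. The HOXA9 OFF libraries were thus above the CAF-1 OFF libraries by 7.08-fold for Lcn2 and by 2390.0-fold for Ltf, which CAF-1 OFF cells barely held. Camp, the antimicrobial peptide cathelicidin, was at 0.632 and 1.83 CPM with CAF-1 OFF and at 343 and 259.9 CPM with HOXA9 OFF (log2 ratio -7.93, SE 0.41, edgeR FDR 2.49e-05). Mmp9, gelatinase B of tertiary granules, had 1.95 and 3.50 CPM with CAF-1 OFF against 309 and 185 CPM with HOXA9 OFF (log2 ratio -6.5, SE 0.51, edgeR FDR 7.09e-05). Olfm4, a matrix glycoprotein of a neutrophil subset, held 0.842 and 8.63 CPM in CAF-1 OFF and 851 and 788 CPM in HOXA9 OFF libraries (log2 ratio -7.43, SE 0.74, edgeR FDR 0.000168). CAF-1 OFF replicate 2 held more of Olfm4 than replicate 1, and both were far below HOXA9 OFF cells. Chi3l3, a chitinase-like protein, was at 160.1 and 484 CPM with CAF-1 OFF and at 10068 and 7778 CPM with HOXA9 OFF (log2 ratio -4.79, SE 0.59, edgeR FDR 0.00044). It shares sequence with paralogs (80.9% of its 50-base windows unique) and is uncertain as a single gene.

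Mmp8, neutrophil collagenase, was the only secondary granule gene on the CAF-1 OFF side, and was singled out after its values were seen. It had 1091 and 1937 CPM with CAF-1 OFF against 556 and 376 CPM with HOXA9 OFF (log2 ratio 1.70, SE 0.33, edgeR FDR 0.00342). Uninduced libraries had 58.3 and 43.4 CPM, so both conditions lay above the reference and CAF-1 OFF cells highest. Against uninduced cells 8 of 14 genes of this list were higher in CAF-1 OFF cells and 14 in HOXA9 OFF cells, with none lower in either. The summed level of the list was 1688 and 2987 CPM in CAF-1 OFF, 18739 and 14393 CPM in HOXA9 OFF and 325.8 and 231.4 CPM in uninduced libraries. Mmp8 alone made up most of the sums in CAF-1 OFF libraries. Some of its members, Ltf (0.312 and 0.428 CPM in uninduced libraries) and Mmp9 (1.78 and 1.11 CPM) among them, missed the threshold in that comparison (edgeR FDR 0.64 and 0.282).

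Among late neutrophil genes, S100a8 and S100a9, the subunits of calprotectin, were both lower with CAF-1 OFF. S100a8 held 28 and 44.5 CPM in CAF-1 OFF and 2309.6 and 1524 CPM in HOXA9 OFF libraries (log2 ratio -5.72, SE 0.35, edgeR FDR 3.31e-05). S100a9 was at 15.0 and 28.1 CPM with CAF-1 OFF and at 1818 and 1125 CPM with HOXA9 OFF (log2 ratio -6.09, SE 0.37, edgeR FDR 3.23e-05). Both were nonetheless above uninduced cells, where S100a8 was at 3.07 and 1.84 CPM and S100a9 at 0.935 and 0.856 CPM (log2 ratio of CAF-1 OFF 3.88 and 4.58, edgeR FDR 0.00224 and 0.00224). Fpr1, the receptor for formyl peptides of bacteria, had 0 and 0.0523 CPM with CAF-1 OFF against 25 and 15.1 CPM with HOXA9 OFF (at least 127-fold lower, with an edgeR FDR of 0.000231). Stfa1, Stfa2 and Stfa3 encode stefins, inhibitors of cysteine proteases, and single genes of the group are uncertain. Their paralogs share sequence (61.5% of windows unique in Stfa1 and 87.1% in Stfa2). Stfa3 held 0 and 0.157 CPM in CAF-1 OFF and 241 and 135 CPM in HOXA9 OFF libraries (at least 1190.0-fold lower, with an edgeR FDR of 3.9e-05). Stfa1 was at 10.4 and 24.8 CPM with CAF-1 OFF and at 1625 and 872 CPM with HOXA9 OFF (log2 ratio -6.15, SE 0.61, edgeR FDR 0.000166). Stfa2 had no count in either CAF-1 OFF library and was at 74.5 and 46.6 CPM in HOXA9 OFF libraries (at least 384-fold lower, with an edgeR FDR of 0.000165). Csf3r, the receptor for granulocyte colony-stimulating factor, had 58.2 and 59.5 CPM with CAF-1 OFF against 303 and 214 CPM with HOXA9 OFF (log2 ratio -2.14, SE 0.17, edgeR FDR 7.6e-05). Cxcr2, the receptor for neutrophil chemokines, held 13.6 and 21.1 CPM in CAF-1 OFF and 82.6 and 48.7 CPM in HOXA9 OFF libraries (log2 ratio -1.92, SE 0.31, edgeR FDR 0.00143). The factor Cebpe, which is needed for secondary granules, was an exception in the list. It was at 277 and 423 CPM with CAF-1 OFF and at 432 and 281 CPM with HOXA9 OFF, with overlapping groups (log2 ratio -0.02, edgeR FDR 0.956). Both conditions were above the 123 and 73.2 CPM of uninduced cells (edgeR FDR 0.0126 for CAF-1 OFF and 0.00215 for HOXA9 OFF). Against uninduced cells 11 of 22 genes were higher in CAF-1 OFF cells and 22 in HOXA9 OFF cells.

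**Figure D2:**
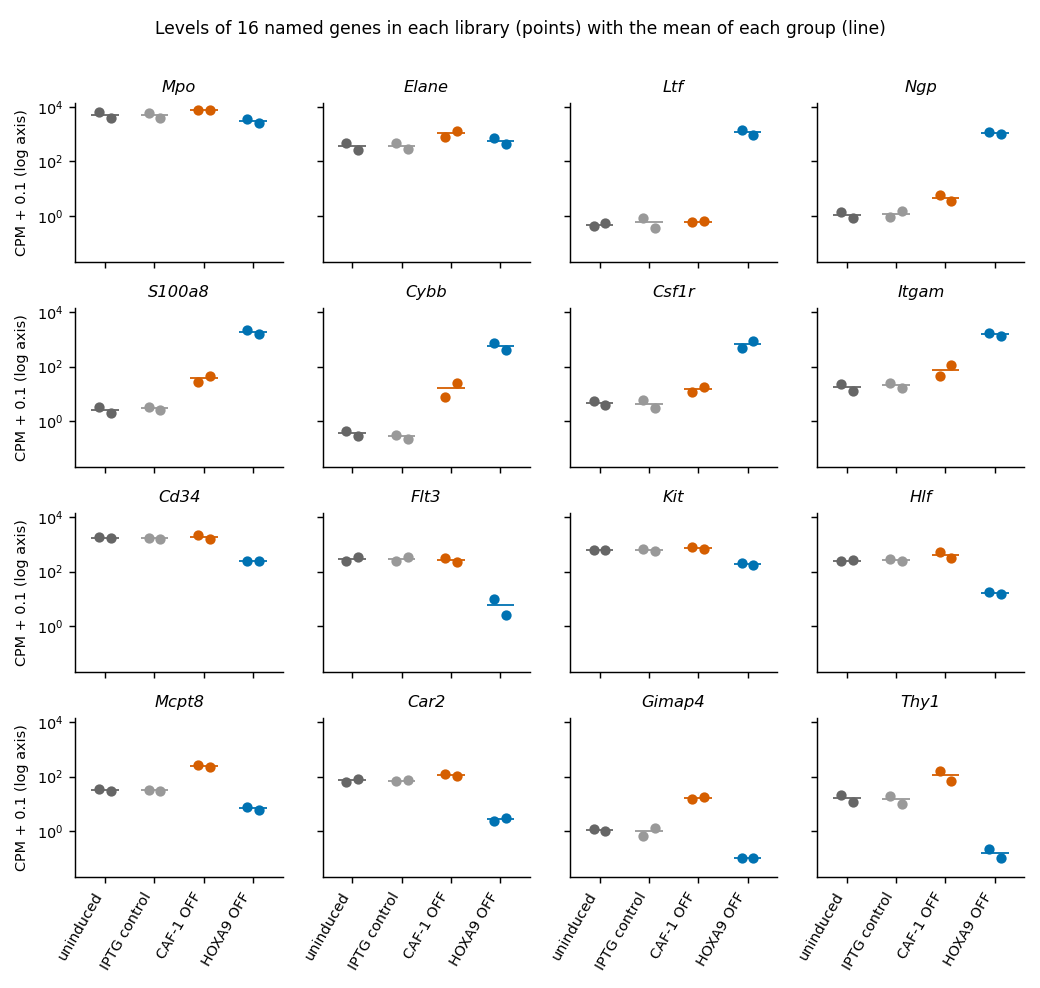
Level of 16 named genes in each of 8 libraries (points, CPM plus 0.1 on a log axis) with the mean of each group (line), for uninduced, IPTG-treated control, CAF-1 OFF and HOXA9 OFF cells. Ltf and Ngp lie far higher in HOXA9 OFF cells than in any other group, and CAF-1 OFF values of S100a8 and Cybb lie between those of uninduced and HOXA9 OFF cells. Cd34, Flt3, Kit and Hlf are lowest in HOXA9 OFF cells, and Mcpt8, Gimap4 and Thy1 lie above uninduced cells in CAF-1 OFF and below them in HOXA9 OFF cells.

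Monocyte and macrophage genes also leaned to HOXA9 OFF cells, with part of the difference in a single library. Of 26 tested, 2 were higher and 13 lower with CAF-1 OFF (median -1.58, or -0.46 without HOXA9 OFF replicate 2 and -2.44 over genes with a mean of at least 50 counts). The 2 higher genes, chosen after their values were seen, were low. They were the matrix gene Vcan (2.37 and 4.23 against 1.63 and 0.992 CPM) and Ly6c1 (0.579 and 1.78 against 0.217 and 0 CPM). Ly6c1 is a close paralog of Ly6c2 and uncertain as a single gene. The summed level of the list was 2328 and 3066 CPM in CAF-1 OFF libraries, 5113 and 11348 CPM in HOXA9 OFF libraries and 1634 CPM in both IPTG-treated control libraries. Csf1r, the receptor that macrophages need, had 11.5 and 17.0 CPM with CAF-1 OFF against 465 and 853 CPM with HOXA9 OFF (log2 ratio -5.53, SE 0.42, edgeR FDR 6.04e-05). Emr1, which encodes the macrophage antigen F4/80, held 26.3 and 42.6 CPM in CAF-1 OFF and 494 and 437 CPM in HOXA9 OFF libraries (log2 ratio -3.75, SE 0.48, edgeR FDR 0.000494). Mpeg1, a pore-forming protein of phagocytes, was at 276 and 534 CPM with CAF-1 OFF and at 1667 and 2437 CPM with HOXA9 OFF (log2 ratio -2.34, SE 0.38, edgeR FDR 0.00151). For these 3 genes both HOXA9 OFF libraries were far above both CAF-1 OFF libraries. Clec4n, the lectin receptor dectin-2, had 0.211 and 0.680 CPM with CAF-1 OFF against 25.3 and 97.2 CPM with HOXA9 OFF (log2 ratio -7.08, SE 0.88, edgeR FDR 0.00045).

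The size of other macrophage differences, and the call of Gpnmb, depended on HOXA9 OFF replicate 2. Ms4a7 held 0.316 and 0.680 CPM in CAF-1 OFF and 18.9 and 313 CPM in HOXA9 OFF libraries, a log2 ratio of -8.36 (edgeR FDR 0.00252) that was -5.24 without that library. Trem2, a lipid receptor of macrophages, was at 0.474 and 1.10 CPM with CAF-1 OFF and at 10.5 and 95.3 CPM with HOXA9 OFF (log2 ratio -6.06, edgeR FDR 0.00841). It was at -3.73 without replicate 2, and its call was lost without CAF-1 OFF replicate 1 (-5.58). Gpnmb had 22.5 and 69.1 CPM in CAF-1 OFF libraries (log2 ratio -4.97, edgeR FDR 0.019). Its log2 ratio was -0.79 without HOXA9 OFF replicate 2 and -4.37 and -5.99 without either CAF-1 OFF library, none of them called. Lyz1, a lysozyme that shares sequence with its paralog (83.1% of windows unique), had 7.95 and 25.2 CPM with CAF-1 OFF against 71.4 and 388 CPM with HOXA9 OFF (log2 ratio -3.79, edgeR FDR 0.00645, and -2.11 without HOXA9 OFF replicate 2). Genes that failed the filter because 1 library held nearly all counts included the complement gene C1qc, with 946 counts in HOXA9 OFF replicate 2 and 3 in replicate 1. Ly6c2, an antigen of monocytes and granulocyte precursors with shared sequence (66.0% of windows unique), did not pass. It held 139 and 307 CPM in CAF-1 OFF and 240.2 and 175 CPM in HOXA9 OFF libraries (edgeR FDR 0.828).

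Sensing and killing genes were higher in HOXA9 OFF cells in most members. Of 18 Toll-like receptor and signalling genes 1 was higher and 15 were lower with CAF-1 OFF (median -1.87). For 24 Fc, complement and scavenger receptors the numbers were 0 and 18 (median -2.16), and for 6 subunits of the phagocyte NADPH oxidase 0 and 6 (median -1.85). Against uninduced cells the numbers higher in CAF-1 OFF cells were 6, 15 and 2, and in HOXA9 OFF cells 16, 22 and 6. Cybb, the membrane subunit that carries electrons to oxygen, was at 7.32 and 24.6 CPM with CAF-1 OFF and at 721 and 391 CPM with HOXA9 OFF (log2 ratio -5.12, SE 0.56, edgeR FDR 0.000247). Its level in uninduced libraries was 0.312 and 0.171 CPM (log2 ratio of CAF-1 OFF over uninduced 6.02, edgeR FDR 0.00634). Cybb lies on chromosome X, 9012378 to 9064897. The interferon response letters stand 168, 124 and 29 bases before the RefSeq start, which lies inside this span. Its partner Cyba had 248 and 285 CPM with CAF-1 OFF against 1010.4 and 936 CPM with HOXA9 OFF (log2 ratio -1.87, SE 0.20, edgeR FDR 0.000221). Of the cytosolic subunits, Ncf1 held 277 and 261 CPM in CAF-1 OFF and 1659 and 1397 CPM in HOXA9 OFF libraries (log2 ratio -2.50, SE 0.14, edgeR FDR 2.88e-05). Ncf4 had a log2 ratio of -1.83 (edgeR FDR 6.94e-05). Rac2, the GTPase of the complex, was at 497 and 488 CPM with CAF-1 OFF and at 1278 and 983 CPM with HOXA9 OFF (log2 ratio -1.20, SE 0.15, edgeR FDR 0.000399). Against uninduced cells Cybb was called in CAF-1 OFF cells, while Ncf1 (289 and 243 CPM in uninduced libraries) and Rac2 (530.0 and 485 CPM) were not (edgeR FDR 0.942 and 0.855).

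The endosomal nucleic acid sensors Tlr7, Tlr8, Tlr9 and Tlr13 were among the Toll-like receptors lower with CAF-1 OFF, while Tlr3, a further one, did not pass the filter. Tlr7, which binds single-stranded RNA, had 0 and 0.0523 CPM with CAF-1 OFF against 38 and 90.6 CPM with HOXA9 OFF (at least 407-fold lower, with an edgeR FDR of 6.63e-05). Tlr8 had no count in either CAF-1 OFF library and 18.7 and 19.6 CPM in HOXA9 OFF libraries (at least 121-fold lower, with an edgeR FDR of 0.000179). Tlr9, which binds unmethylated DNA, held 0.263 and 1.10 CPM in CAF-1 OFF and 21.2 and 38.2 CPM in HOXA9 OFF libraries (log2 ratio -5.43, SE 0.59, edgeR FDR 0.000238). Tlr13, which binds bacterial ribosomal RNA, was at 1.16 and 2.61 CPM with CAF-1 OFF and at 49.5 and 82.1 CPM with HOXA9 OFF (log2 ratio -5.12, SE 0.44, edgeR FDR 9.54e-05). Tlr2, a receptor for lipoproteins, had 14.4 and 24.1 CPM with CAF-1 OFF against 147 and 234 CPM with HOXA9 OFF (log2 ratio -3.31, SE 0.37, edgeR FDR 0.000264). Tlr4, the receptor for lipopolysaccharide, held 87.4 and 115 CPM in CAF-1 OFF and 75.5 and 112 CPM in HOXA9 OFF libraries with overlapping groups (edgeR FDR 0.735). The exception of the list was Tlr12, a sensor of parasite profilin, named after its values were seen. It was at 21.6 and 20.9 CPM with CAF-1 OFF and at 1.68 and 1.34 CPM with HOXA9 OFF (log2 ratio 3.81, SE 0.26, edgeR FDR 4.62e-05). With 4.27 and 3.38 CPM in uninduced libraries, CAF-1 OFF cells lay above and HOXA9 OFF cells below the reference (edgeR FDR 0.00245 and 0.00278).

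Itgam, the integrin chain CD11b of mature myeloid cells, had 43.0 and 111 CPM with CAF-1 OFF against 1778 and 1342 CPM with HOXA9 OFF (log2 ratio -4.34, SE 0.50, edgeR FDR 0.000315). C3ar1, the receptor of a complement fragment, held 0.211 and 0 CPM in CAF-1 OFF and 15.5 and 171 CPM in HOXA9 OFF libraries (log2 ratio -9.71, SE 1.62, edgeR FDR 0.00264). Most of its HOXA9 OFF counts were thus in replicate 2. Several receptors of the list belong to families with shared sequence and are uncertain as single genes. Lilrb3 (67.5% of windows unique) was at 1.16 and 1.67 CPM with CAF-1 OFF and at 104 and 139 CPM with HOXA9 OFF (log2 ratio -6.42, SE 0.26, edgeR FDR 1.34e-05). Clec4a2 (91.6%) had 5.0 and 7.68 CPM with CAF-1 OFF against 361 and 272 CPM with HOXA9 OFF (log2 ratio -5.64, SE 0.43, edgeR FDR 6.31e-05). Pira2 (54.6%) was at least 30.5-fold lower with CAF-1 OFF (edgeR FDR 0.00121). Fcgr4, an Fc receptor for IgG, held 10.2 and 23.4 CPM in CAF-1 OFF and 64.5 and 48.3 CPM in HOXA9 OFF libraries (log2 ratio -1.75, SE 0.37, edgeR FDR 0.00557). Both conditions were above the 0.712 and 0.428 CPM of uninduced cells.

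Lysosomal genes followed the same side: 1 of 44 was higher and 36 were lower with CAF-1 OFF (median -1.34, or -1.16 without HOXA9 OFF replicate 2), with 4 higher than uninduced in CAF-1 OFF and 38 in HOXA9 OFF cells. The summed level of the list was 7864 and 8412 CPM in CAF-1 OFF and 21698 and 42935 CPM in HOXA9 OFF replicates 1 and 2. Ctss, the protease cathepsin S, was at 3.0 and 7.48 CPM with CAF-1 OFF and at 150.1 and 452 CPM with HOXA9 OFF (log2 ratio -5.84, SE 0.74, edgeR FDR 0.000501). Lamp1, a protein of the lysosomal membrane, had 327 and 424 CPM with CAF-1 OFF against 1113 and 1588 CPM with HOXA9 OFF (log2 ratio -1.85, SE 0.22, edgeR FDR 0.000354). In uninduced cells Lamp1 was at 249.6 and 302 CPM, and it was not called in CAF-1 OFF cells against them (edgeR FDR 0.17). The cathepsins Ctsb and Ctsd had log2 ratios of -3.38 and -2.51 (edgeR FDR 0.00129 and 0.00342), which were -2.19 and -1.38 without HOXA9 OFF replicate 2, where they were higher than in replicate 1. Lgmn, the protease legumain, held 17.0 and 14.7 CPM in CAF-1 OFF and 18.1 and 306 CPM in HOXA9 OFF libraries and rested on replicate 2 (log2 ratio -3.35, edgeR FDR 0.0409, but -0.20 without it). The call of Lgmn was lost in all 8 fits that left out 1 library. Ctsz did not pass (log2 ratio -0.74, edgeR FDR 0.0821).

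Most interferon-stimulated genes rose in both conditions, and most stood higher in HOXA9 OFF cells. Of 39 tested, 24 were higher than in uninduced cells in CAF-1 OFF and 35 in HOXA9 OFF cells, with none lower in either. In the direct comparison 3 were higher and 25 lower in CAF-1 OFF than in HOXA9 OFF cells (median -1.57, or -1.11 without HOXA9 OFF replicate 2). In HOXA9 OFF cells the median log2 ratio of replicate 2 to replicate 1 over the list was 0.79. Isg15 encodes a ubiquitin-like modifier and lies on chromosome 4, 155573533 to 155574927. Its levels were 0.623 and 0.299 CPM in uninduced and 0.707 and 0.797 CPM in IPTG-treated control libraries. With CAF-1 OFF they were 4.63 and 5.59 CPM and with HOXA9 OFF 12.4 and 30.7 CPM (log2 ratio -2.07, edgeR FDR 0.00591, and -1.28 without HOXA9 OFF replicate 2). Its 3 overlapping interferon response matches start 78, 72 and 66 bases before the start. Irf7, the factor that amplifies interferon production, was at 7.53 and 8.05 CPM with CAF-1 OFF and at 35.2 and 59.5 CPM with HOXA9 OFF (log2 ratio -2.60, SE 0.26, edgeR FDR 0.000174). Uninduced libraries had 0.890 and 0.813 CPM of Irf7 (edgeR FDR 0.00224 for CAF-1 OFF). Levels were thus graded, with uninduced cells lowest and HOXA9 OFF cells highest, for Isg15 and Irf7.

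Ifit1 and Ifit3, which bind foreign RNA and share sequence with paralogs (92.7% and 48.2% of windows unique), were higher in HOXA9 OFF cells. Ifit1 had 3.05 and 4.03 CPM with CAF-1 OFF against 29.1 and 64.9 CPM with HOXA9 OFF (log2 ratio -3.73, SE 0.41, edgeR FDR 0.00026). Ifit3 held 0.105 and 0.314 CPM in CAF-1 OFF and 15.7 and 33.5 CPM in HOXA9 OFF libraries (log2 ratio -6.83, SE 0.79, edgeR FDR 0.000331). In CAF-1 OFF against uninduced cells Ifit1 was called (edgeR FDR 0.00967) and Ifit3 was not (edgeR FDR 0.493). Oasl2, an oligoadenylate synthetase-like protein, was at 8.42 and 11.4 CPM with CAF-1 OFF and at 30.6 and 106 CPM with HOXA9 OFF (log2 ratio -2.78, edgeR FDR 0.00776). It was at -1.63 without HOXA9 OFF replicate 2 and not called without CAF-1 OFF replicate 1 (-2.57). The 3 genes on the CAF-1 OFF side, chosen after their values were seen, were Ifih1, a sensor of long double-stranded RNA, and Tap1 and Psmb9 of the antigen processing machinery. Ifih1 had 78.0 and 135 CPM with CAF-1 OFF against 32.2 and 52.8 CPM with HOXA9 OFF (log2 ratio 1.33, SE 0.31, edgeR FDR 0.00844). Tap1 held 235 and 230.3 CPM in CAF-1 OFF and 129.6 and 136 CPM in HOXA9 OFF libraries (log2 ratio 0.81, SE 0.13, edgeR FDR 0.00147). Psmb9 was at 146 and 141 CPM with CAF-1 OFF and at 86.5 and 89.4 CPM with HOXA9 OFF (log2 ratio 0.71, SE 0.12, edgeR FDR 0.00199). The number on that side was 5 without HOXA9 OFF replicate 2.

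Cytokines and chemokines were mostly on the HOXA9 OFF side, with a CXC chemokine on the other. Of 22 tested, 1 was higher and 12 were lower with CAF-1 OFF (median -1.80), and without HOXA9 OFF replicate 2 the number higher was 4. Il18, a cytokine activated by inflammasomes, had 0.158 and 0.209 CPM with CAF-1 OFF against 4.34 and 6.10 CPM with HOXA9 OFF (log2 ratio -4.78, SE 0.54, edgeR FDR 0.000279). Tnf held 2.79 and 2.30 CPM in CAF-1 OFF and 7.49 and 16.1 CPM in HOXA9 OFF libraries (log2 ratio -2.21, SE 0.42, edgeR FDR 0.0034). Ccl3, a chemokine for monocytes, was at 18.8 and 30.5 CPM with CAF-1 OFF and at 62.8 and 284 CPM with HOXA9 OFF (log2 ratio -2.81, edgeR FDR 0.00639). Its log2 ratio was -1.36 without HOXA9 OFF replicate 2 and, not called, -2.50 without CAF-1 OFF replicate 1. Cxcl3, a ligand of CXCR2 that shares sequence with Cxcl2 (93.8% of windows unique), had 24.7 and 91.4 CPM with CAF-1 OFF against 0.163 and 1.54 CPM with HOXA9 OFF (log2 ratio 6.06, SE 0.99, edgeR FDR 0.00241). It was the higher member, with both CAF-1 OFF libraries far above both HOXA9 OFF libraries. Il1b held 4.95 and 12.2 CPM in CAF-1 OFF and 5.05 and 2.93 CPM in HOXA9 OFF libraries with overlapping groups (edgeR FDR 0.298). Cxcl2 was at 2.95 and 5.44 CPM with CAF-1 OFF and at 0.868 and 7.94 CPM with HOXA9 OFF (edgeR FDR 0.955). Of 30 chemokine and growth factor receptors, 6 were higher and 19 lower with CAF-1 OFF (median -1.26). Il10ra, the receptor for interleukin 10, had 0.368 and 0.261 CPM with CAF-1 OFF against 12.4 and 25.5 CPM with HOXA9 OFF (log2 ratio -5.88, SE 0.61, edgeR FDR 0.000198). Csf2rb, the shared receptor chain for GM-CSF, interleukin 3 and interleukin 5, which shares sequence with a paralog (81.1% of windows unique), did not pass (471 and 649.8 against 662 and 660.5 CPM, edgeR FDR 0.221). Epor, Kit, Ccr7, Flt3 and, named after its values were seen, Cmklr1 were among the 6 receptors on the CAF-1 OFF side. With either CAF-1 OFF library left out, the number on that side was 3.

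Antigen presentation genes went both ways. Of 12 tested among 20 listed, 4 were higher and 7 lower with CAF-1 OFF (median -1.22), and 7 in place of 11 were called without CAF-1 OFF replicate 1. The defining genes H2-Ab1 and Ciita did not pass the filter. H2-Aa, an MHC class II chain, held 4.90 and 3.92 CPM in CAF-1 OFF and 0.163 and 0.546 CPM in HOXA9 OFF libraries (log2 ratio 3.6, SE 0.63, edgeR FDR 0.00496), and had 0 counts in uninduced cells. Irf4, a factor of dendritic cells and alternatively activated macrophages, was at 0.526 and 0.889 CPM with CAF-1 OFF and at 46.1 and 58.8 CPM with HOXA9 OFF (log2 ratio -6.20, SE 0.49, edgeR FDR 7.09e-05). Cd74, the invariant chain, had 1.79 and 3.92 CPM with CAF-1 OFF against 7.05 and 38.8 CPM with HOXA9 OFF (log2 ratio -3.0, edgeR FDR 0.0123). Its call was lost without HOXA9 OFF replicate 2 (-1.31), without CAF-1 OFF replicate 1 (-2.54) and in a fit of the 4 libraries alone (-3.01).

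Transcription factors of myeloid fate were found on both sides, those of monocytes with HOXA9 OFF and the repressor Gfi1 with CAF-1 OFF cells. Of 24 tested, 6 were higher and 13 lower with CAF-1 OFF (median -0.97), with 7 above uninduced in CAF-1 OFF and 18 above and 3 below it in HOXA9 OFF cells. Klf2 and Klf4, Krüppel-like factors of quiescence and of monocytes, were far higher in HOXA9 OFF cells. Klf2 held 0.895 and 1.88 CPM in CAF-1 OFF and 59.3 and 47.4 CPM in HOXA9 OFF libraries (log2 ratio -5.26, SE 0.46, edgeR FDR 0.000102). Klf4 was at 0.421 and 0.941 CPM with CAF-1 OFF and at 13.7 and 35.5 CPM with HOXA9 OFF (log2 ratio -5.16, SE 0.78, edgeR FDR 0.00113). Id2, an inhibitor of helix-loop-helix factors, had 7.42 and 5.70 CPM with CAF-1 OFF against 110.2 and 126 CPM with HOXA9 OFF (log2 ratio -4.17, SE 0.33, edgeR FDR 7.15e-05). Irf8, which favours monocytes over neutrophils, held 39.9 and 86.7 CPM in CAF-1 OFF and 134 and 133 CPM in HOXA9 OFF libraries (log2 ratio -1.08, edgeR FDR 0.0249). The call was lost with library size as the only scaling (-0.84), in a fit of the 4 libraries alone (-1.07), and without CAF-1 OFF replicate 1 (-0.62) or HOXA9 OFF replicate 1 (-1.08). The value was -1.74 without CAF-1 OFF replicate 2. On the other side stood Gfi1, the repressor that steers progenitors to neutrophils. It was at 569 and 677 CPM with CAF-1 OFF and at 207 and 129.9 CPM with HOXA9 OFF (log2 ratio 1.89, SE 0.21, edgeR FDR 0.000264). With 388 and 365 CPM in uninduced libraries, it was above the reference in CAF-1 OFF (edgeR FDR 0.0422) and below it in HOXA9 OFF cells (edgeR FDR 0.00192). Its paralog Gfi1b, a factor of erythroid and megakaryocyte cells, had 18.1 and 35.2 CPM with CAF-1 OFF against 5.32 and 3.17 CPM with HOXA9 OFF (log2 ratio 2.65, SE 0.51, edgeR FDR 0.00356). Cebpa, the factor that sets up the granulocyte-macrophage progenitor, held 361 and 262 CPM in CAF-1 OFF and 182 and 163 CPM in HOXA9 OFF libraries (log2 ratio 0.85, SE 0.16, edgeR FDR 0.00308).

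ETS factors were called at close to the shares over all tested genes (22.2% higher and 21.4% lower). Of 15, 3 were higher and 4 lower with CAF-1 OFF, with lower numbers of 1 under library size scaling and 2 without CAF-1 OFF replicate 1 or HOXA9 OFF replicate 2. The median of -0.11 turned to 0.12 with library size as the only scaling and ran from -0.25 to -0.05 without 1 library of either condition. Erg, a stem cell factor, was at 142 and 149 CPM with CAF-1 OFF and at 64.2 and 38.4 CPM with HOXA9 OFF (log2 ratio 1.5, SE 0.22, edgeR FDR 0.00103). Elf4, which restrains proliferation, had 104 and 113 CPM with CAF-1 OFF against 264 and 199 CPM with HOXA9 OFF (log2 ratio -1.09, SE 0.16, edgeR FDR 0.000866). Fli1 held 83.7 and 81.0 CPM in CAF-1 OFF and 153 and 128 CPM in HOXA9 OFF libraries (log2 ratio -0.77, edgeR FDR 0.0108). It missed the call with library size as the only scaling (-0.54) or without CAF-1 OFF replicate 1 or 2 (-0.79 and -0.74). Etv5 was at 36.2 and 26.2 CPM with CAF-1 OFF and at 1.41 and 11.6 CPM with HOXA9 OFF (log2 ratio 2.25, edgeR FDR 0.035). The value was 4.45 without HOXA9 OFF replicate 2 and 1.42 without replicate 1. Its call was lost without any of the other 6 libraries. Elf1 and Ets1 did not pass (edgeR FDR 0.0368 for -0.32, under 1.5-fold, and 0.159), although Ets1, with 1.79 and 13.1 CPM in CAF-1 OFF libraries, was called at -3.37 without CAF-1 OFF replicate 2.

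AP-1 factors, which answer stress and growth signals, leaned to HOXA9 OFF cells, with 1 higher and 8 lower with CAF-1 OFF of 14 (median -1.28) and 1 and 10 above uninduced cells with CAF-1 OFF and with HOXA9 OFF. Fos had 8.26 and 5.80 CPM with CAF-1 OFF against 62.3 and 154 CPM with HOXA9 OFF (log2 ratio -3.94, SE 0.44, edgeR FDR 0.000271). Atf3 held 1.32 and 0.470 CPM in CAF-1 OFF and 15.0 and 89.3 CPM in HOXA9 OFF libraries (log2 ratio -5.86, SE 0.90, edgeR FDR 0.00124). Both genes were higher in HOXA9 OFF replicate 2 than in replicate 1. Jund and Fosl2, with closer replicates, had log2 ratios of -1.91 and -1.88 (edgeR FDR 0.000134 and 0.000199). Batf did not pass the fold limit (-0.48).

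**Figure D3:**
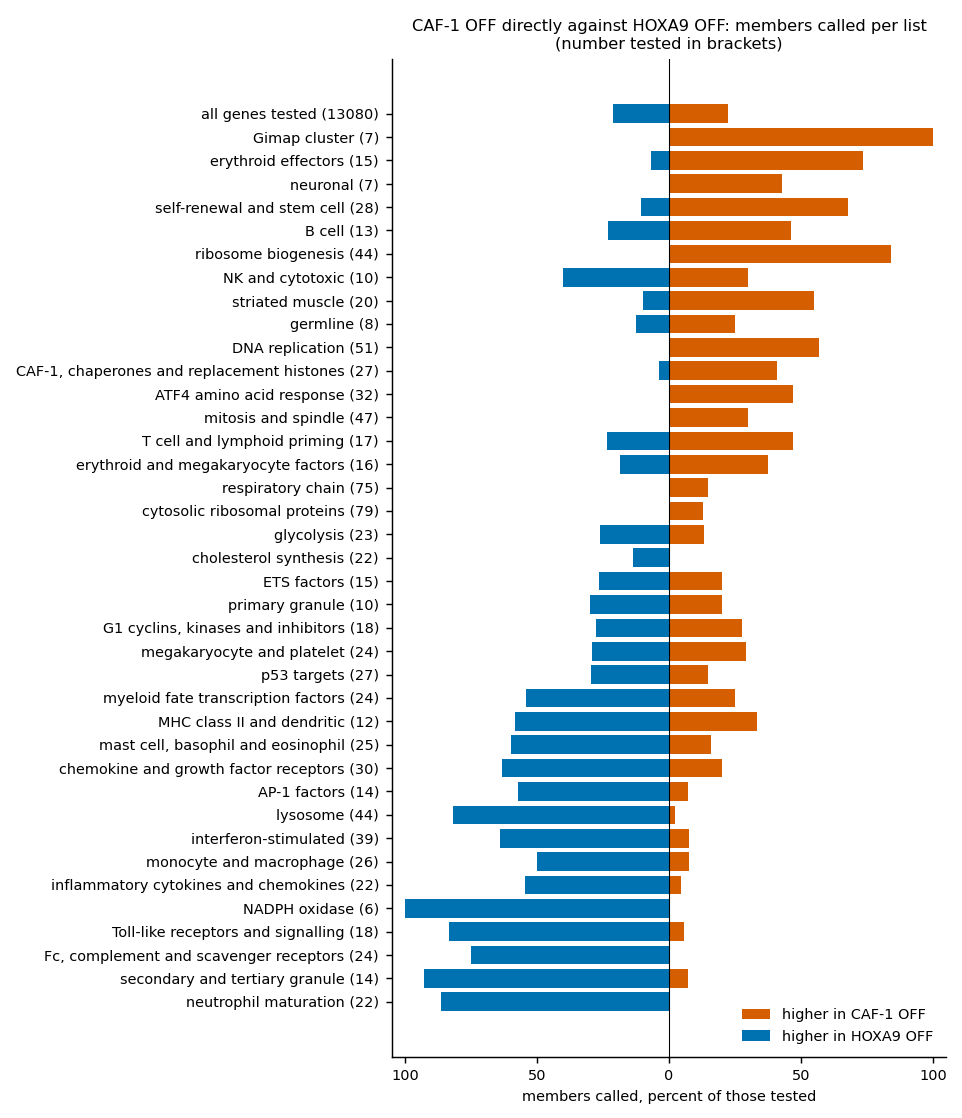
Percent of the tested members of each list called in the direct comparison, higher in CAF-1 OFF cells (bars to the right) or higher in HOXA9 OFF cells (bars to the left), sorted by the median of the list, with all 13080 tested genes on top at 22.2% and 21.4%. Granule, sensing and lysosomal lists lie almost wholly to the left, and the Gimap, stem cell, ribosome biogenesis and erythroid effector lists to the right.

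Most stem and progenitor genes were higher in CAF-1 OFF cells, and many of these were below uninduced cells in HOXA9 OFF cells. Of 28 stem and progenitor genes tested, 19 were higher and 3 lower with CAF-1 OFF (median 1.65). Against uninduced cells 6 were higher and 1 lower with CAF-1 OFF, and 4 higher and 15 lower in HOXA9 OFF cells. Hlf, a leucine zipper factor of stem cells, was at 517 and 303 CPM with CAF-1 OFF and at 17.1 and 15.2 CPM with HOXA9 OFF (log2 ratio 4.66, SE 0.27, edgeR FDR 2.88e-05). Hlf was at 242 and 267 CPM in uninduced libraries (edgeR FDR 0.0682 for CAF-1 OFF) and lies on chromosome 11, 90197849 to 90252231. Angpt1, a ligand made by stem cells, had 193 and 113 CPM with CAF-1 OFF against 4.29 and 2.73 CPM with HOXA9 OFF (log2 ratio 5.45, SE 0.43, edgeR FDR 7.09e-05). Angpt1 was at 148 and 112 CPM in uninduced libraries, and neither gene was called in CAF-1 OFF against uninduced cells (edgeR FDR 0.64 for Angpt1). Kit, the receptor for stem cell factor, held 781 and 684 CPM in CAF-1 OFF and 198 and 167 CPM in HOXA9 OFF libraries (log2 ratio 2.0, SE 0.14, edgeR FDR 4.78e-05). Flt3, a receptor of early progenitors, had log2 ratio 5.52 (edgeR FDR 0.000186). Myc, the growth factor of transcription, was at 455 and 392 CPM with CAF-1 OFF and at 129.7 and 115 CPM with HOXA9 OFF (log2 ratio 1.79, SE 0.13, edgeR FDR 4.78e-05). Myb, which keeps progenitors immature, had 943 and 761 CPM with CAF-1 OFF against 380.0 and 241 CPM with HOXA9 OFF (log2 ratio 1.46, SE 0.21, edgeR FDR 0.000936). Tal1, a factor of stem and erythroid cells, held 73.5 and 53.8 CPM in CAF-1 OFF and 19.7 and 16.1 CPM in HOXA9 OFF libraries (log2 ratio 1.83, SE 0.17, edgeR FDR 0.000144). Sox4, an oncogene of HOX-driven leukaemia, was at 57.3 and 36.0 CPM with CAF-1 OFF and at 2.39 and 6.05 CPM with HOXA9 OFF (log2 ratio 3.45, SE 0.43, edgeR FDR 0.000435).

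Meis1, the partner of HOXA9, was lowered on both routes. It was at 37.7 and 53.3 CPM in uninduced libraries, 28.7 and 20.2 CPM in CAF-1 OFF (edgeR FDR 0.0333) and 8.57 and 9.22 CPM in HOXA9 OFF libraries (edgeR FDR 0.000142). CAF-1 OFF libraries stayed above HOXA9 OFF ones (log2 ratio 1.46, SE 0.24, edgeR FDR 0.00177). Mycn, a relative of Myc, had 0 counts in both HOXA9 OFF libraries. It was at 7.05 and 1.73 CPM with CAF-1 OFF (at least 27.0-fold higher, with an edgeR FDR of 0.0013). Gata2, a factor of stem and mast cells, had 115 and 112 CPM with CAF-1 OFF against 64.2 and 60.9 CPM with HOXA9 OFF (log2 ratio 0.86, SE 0.11, edgeR FDR 0.000423). The genes of the list on the HOXA9 OFF side, named after their values were seen, were Prom1 (0.105 and 1.10 against 21.4 and 13.1 CPM), Ly6a (0.316 and 0.680 against 2.28 and 3.62 CPM) and Hoxa9 itself. The study attributes the Hoxa9 RNA to the fusion gene. The 8 listed genes that did not pass the filter, Hoxa3, Hoxa5, Hoxa6, Hoxa7, Hoxa10, Mecom, Dach1 and Bcl11a, had at most 20 counts in any library.

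Several erythroid genes were higher in CAF-1 OFF cells, most of them at low counts. Of 16 erythroid and megakaryocyte factors tested 6 were higher and 3 lower with CAF-1 OFF (median 0.27, or 0.50 with library size as the only scaling, 0.12 over genes with a mean of at least 50 counts and 0.15 without HOXA9 OFF replicate 2). Of 15 erythroid effectors 11 were higher and 1 lower (median 2.66, or 2.01 with genes at the floor set to their bound). Only 15 of 30 listed effectors passed the filter, and the defining genes Hba-a1 and Car1 did not. Car2, carbonic anhydrase II, held 126 and 104 CPM in CAF-1 OFF and 2.28 and 2.83 CPM in HOXA9 OFF libraries (log2 ratio 5.49, SE 0.19, edgeR FDR 1.34e-05). The gene lies on chromosome 3, 14886426 to 14900769 and was at 65.2 and 79.7 CPM in uninduced libraries (edgeR FDR 0.0213 for CAF-1 OFF and 9.93e-06 for HOXA9 OFF). Eng, the co-receptor endoglin, was at 19.3 and 33.2 CPM with CAF-1 OFF and at 1.14 and 0.992 CPM with HOXA9 OFF (log2 ratio 4.62, SE 0.34, edgeR FDR 5.89e-05), around 2.45 and 2.65 CPM in uninduced libraries. Tfrc, the receptor for iron-loaded transferrin, had 623 and 576 CPM with CAF-1 OFF against 392 and 286 CPM with HOXA9 OFF (log2 ratio 0.82, SE 0.19, edgeR FDR 0.00736). The further effectors described here were low. Add2, an adducin of the membrane skeleton, held 0.895 and 2.40 CPM in CAF-1 OFF and 0 CPM in HOXA9 OFF libraries (at least 10.1-fold higher, with an edgeR FDR of 0.00261). The beta globin Hbb-b2, with shared sequence (42.0% of windows unique), was at 1.79 and 1.15 CPM with CAF-1 OFF and at 0 and 0.0496 CPM with HOXA9 OFF (at least 9.03-fold higher, with an edgeR FDR of 0.00472). With only genes of a mean of at least 50 counts kept, 4 effectors were higher in CAF-1 OFF cells and the median of the list was 0.84.

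Among the factors, Zfpm1, the GATA1 cofactor FOG1, had 56.9 and 50.7 CPM with CAF-1 OFF against 9.06 and 8.83 CPM with HOXA9 OFF (log2 ratio 2.59, SE 0.13, edgeR FDR 2.22e-05). Gata1 itself held 9.32 and 9.62 CPM in CAF-1 OFF and 19.6 and 10.8 CPM in HOXA9 OFF libraries with an edgeR FDR of 0.317. Klf1, the erythroid Krüppel-like factor, was at 1.053 and 1.36 CPM with CAF-1 OFF and at 0.651 and 0.347 CPM with HOXA9 OFF (edgeR FDR 0.0584). It passed with library size as the only scaling (log2 ratio 1.5). Nfe2, a factor of platelet formation, was on the other side and had 171 and 155 CPM with CAF-1 OFF against 328 and 246 CPM with HOXA9 OFF (log2 ratio -0.82, edgeR FDR 0.00838). Its call was lost with library size as the only scaling (-0.58) and without CAF-1 OFF replicate 2 (-0.75). Epor, the erythropoietin receptor, held 4.90 and 3.71 CPM in CAF-1 OFF and 2.55 and 1.64 CPM in HOXA9 OFF libraries (log2 ratio 1.04, edgeR FDR 0.0365). The call was lost in 7 of 8 fits without 1 library, at values from 0.74 without HOXA9 OFF replicate 2 to 1.23 without CAF-1 OFF replicate 2.

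Of 24 megakaryocyte and platelet genes tested, 11 were above uninduced cells with CAF-1 OFF and 16 with HOXA9 OFF, beside 10.5% and 25.2% of all tested genes. In the direct comparison 7 were higher and 7 lower with CAF-1 OFF. That was 29.2% on each side, near the 22.2% and 21.4% of all tested genes. In a fit of the 4 libraries alone 4 were higher. The median of -0.44 turned to 0.03 without HOXA9 OFF replicate 2, and was -0.73 without CAF-1 OFF replicate 2, -0.67 in the 4 libraries alone and -0.21 with library size as the only scaling. Itga2b, the integrin chain CD41, was at 109 and 74.5 CPM with CAF-1 OFF and at 114 and 93.3 CPM with HOXA9 OFF (edgeR FDR 0.479). From 14.9 and 17.5 CPM in uninduced libraries it was called higher on both routes (edgeR FDR 0.0019 and 4.44e-05). F2rl3, a thrombin receptor of platelets, had 39.3 and 30.4 CPM with CAF-1 OFF against 1.68 and 1.98 CPM with HOXA9 OFF (log2 ratio 4.24, SE 0.22, edgeR FDR 2.25e-05), around 14.2 and 12.4 CPM in uninduced libraries. P2ry12, a platelet receptor for ADP, held 0 and 0.105 CPM in CAF-1 OFF and 1.52 and 1.98 CPM in HOXA9 OFF libraries (at least 11.1-fold lower, with an edgeR FDR of 0.00698). Pf4, platelet factor 4, was at 55.7 and 124 CPM with CAF-1 OFF and at 1.25 and 20.8 CPM with HOXA9 OFF (log2 ratio 3.02, edgeR FDR 0.0284). It was at 6.16 without HOXA9 OFF replicate 2, and its call was lost without CAF-1 OFF replicate 2 (2.33) or either uninduced library (3.02). Vwf, von Willebrand factor, had 0.842 and 1.83 CPM with CAF-1 OFF against 0.651 and 53.6 CPM with HOXA9 OFF (log2 ratio -4.34, edgeR FDR 0.0421). It turned to 1.02 without HOXA9 OFF replicate 2, while its call was lost in all 8 fits without 1 library. Ppbp did not pass (edgeR FDR 0.307).

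Mast cell, basophil and eosinophil genes were called on both sides, most of them higher in HOXA9 OFF cells. Of 25 tested, 4 were higher and 15 lower with CAF-1 OFF (median -1.26). The eosinophil granule genes were on the HOXA9 OFF side. Epx, eosinophil peroxidase, held 3.0 and 6.90 CPM in CAF-1 OFF and 422 and 252 CPM in HOXA9 OFF libraries (log2 ratio -6.09, SE 0.57, edgeR FDR 0.000132). Prg2, major basic protein, was at 1127 and 1312 CPM with CAF-1 OFF and at 11637 and 7118 CPM with HOXA9 OFF (log2 ratio -2.94, SE 0.44, edgeR FDR 0.00111). Ribonucleases of eosinophils lay on the same side. Ear6 had 0.105 and 0.0523 CPM with CAF-1 OFF against 90.1 and 34.2 CPM with HOXA9 OFF (at least 394-fold lower, with an edgeR FDR of 8.94e-05). Ear2, with shared sequence (62.7% of windows unique), held 0.0526 and 0.680 CPM in CAF-1 OFF and 77.7 and 50.6 CPM in HOXA9 OFF libraries (log2 ratio -7.42, SE 0.75, edgeR FDR 0.000181). Of the protease genes of basophils and mast cells, Mcpt8, Cpa3 and Prss34 were higher in CAF-1 OFF cells. The mast cell proteases Tpsb2 and Cma1, named after their values were seen, were not called. Tpsb2 had 0.579 and 0 against 1.14 and 0.496 CPM and Cma1 3.32 and 2.40 against 4.23 and 1.93 CPM (edgeR FDR 0.491 and 0.919). Mcpt8, the basophil protease, was at 267 and 228 CPM with CAF-1 OFF and at 7.38 and 5.95 CPM with HOXA9 OFF (log2 ratio 5.22, SE 0.17, edgeR FDR 1.34e-05). Mcpt8 lies on chromosome 14, 56701003 to 56704053. It was at 34.4 and 29.5 CPM in uninduced and 32.6 and 28.9 CPM in IPTG-treated control libraries. CAF-1 OFF cells were above and HOXA9 OFF cells below the reference (edgeR FDR 0.000534 and 2.96e-05). Cpa3, mast cell carboxypeptidase, had 764 and 423 CPM with CAF-1 OFF against 148 and 209.9 CPM with HOXA9 OFF (log2 ratio 1.73, SE 0.32, edgeR FDR 0.00297). Hdc, which makes histamine, held 72.6 and 83.4 CPM in CAF-1 OFF and 199 and 128 CPM in HOXA9 OFF libraries (log2 ratio -1.07, edgeR FDR 0.0173). The call was lost without CAF-1 OFF replicate 1 (-0.97), CAF-1 OFF replicate 2 (-1.17) or HOXA9 OFF replicate 1 (-0.72). Prss34, a basophil protease, and Alox5, which starts leukotriene synthesis, were the further members on the CAF-1 OFF side, named after their values were seen. Prss34 had 9.21 and 2.20 against 1.19 and 0.992 CPM, and Alox5 7.26 and 15.2 against 0.760 and 0.397 CPM. The summed level of the list was 2797 and 2743 CPM in CAF-1 OFF and 14243 and 9138 CPM in HOXA9 OFF libraries. Fcer1a, the defining IgE receptor chain, did not pass the filter.

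Lymphoid genes were called on both sides, more of them higher in CAF-1 OFF cells. Rag2, Ebf1 and Igll1, which uninduced cells expressed, were low in HOXA9 OFF cells and higher in CAF-1 OFF cells. Of 32 T cell and lymphoid priming genes 17 passed the filter, 8 of them higher and 4 lower with CAF-1 OFF (median 0.40). Without 1 library this median ran from 0.10 (CAF-1 OFF replicate 1) to 1.72 (HOXA9 OFF replicate 2), with 0.80 without CAF-1 OFF replicate 2. It was 0.74 with the replicate block, 0.62 with library size as the only scaling and 0.25 over genes with a mean of at least 50 counts. Of 23 B cell genes 13 passed, with 6 higher and 3 lower (median 1.36, or 0.89 without HOXA9 OFF replicate 1). The defining genes Cd3e and Pax5 did not pass. Rag2, a subunit of the recombinase, was at 40.3 and 16.8 CPM with CAF-1 OFF and at 0.163 and 0.0992 CPM with HOXA9 OFF (at least 175-fold higher, with an edgeR FDR of 0.000135), against 41.2 and 66.0 CPM in uninduced libraries. Rag1 was at 3.37 and 1.73 CPM with CAF-1 OFF and 0 with HOXA9 OFF (at least 15.6-fold higher, with an edgeR FDR of 0.00549). Dntt, the template-free DNA polymerase of lymphocyte precursors, was at 16.9 and 11.4 CPM with CAF-1 OFF, 0 in HOXA9 OFF cells and 1.47 and 1.54 CPM in uninduced libraries (at least 86.9-fold higher, with an edgeR FDR of 4.41e-05). Thy1, a surface antigen, had 159 and 71.4 CPM with CAF-1 OFF against 0.109 and 0 CPM with HOXA9 OFF (at least 708-fold higher, with an edgeR FDR of 9.11e-05), against 20.7 and 11.9 CPM. Against uninduced cells Rag2 was not called in CAF-1 OFF cells (edgeR FDR 0.15), while Dntt and Thy1 rose (edgeR FDR 0.00344 and 0.0117). Tcf7 and Lck, a factor and a kinase of T cells, were also on this side (Tcf7 25.6 and 22.7 against 1.79 and 1.88 CPM, edgeR FDR 0.000196; Lck 5.05 and 6.43 against 0.109 and 0.149 CPM, edgeR FDR 0.00164). On the other side were Cd28, Il7r, Ltb and Notch1, with Ltb and Notch1 named after their values were seen. Cd28, a co-receptor, had 5.84 and 8.89 against 88.2 and 189 CPM (log2 ratio -4.24, edgeR FDR 0.000921). Il7r, the receptor chain for interleukin 7, was at 0 and 0.889 CPM with CAF-1 OFF and 1.25 and 40.2 CPM with HOXA9 OFF (log2 ratio -5.52, edgeR FDR 0.0294), so that HOXA9 OFF replicate 2 held nearly all of it. Its log2 ratio was -1.48 and not called without that library, and the call was also lost without either CAF-1 OFF library, in a fit of the 4 libraries alone and with DESeq2. Ltb had 6.58 and 8.68 against 28.4 and 26.7 CPM (edgeR FDR 0.000474), and Notch1 69.3 and 90.8 against 153 and 121 CPM (edgeR FDR 0.00827).

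Of B cell genes, Ebf1, the factor that commits cells to the B lineage, held 119 and 74.3 CPM in CAF-1 OFF and 1.14 and 1.19 CPM in HOXA9 OFF libraries (log2 ratio 6.36, SE 0.29, edgeR FDR 1.82e-05). Igll1, a surrogate light chain, was at 294 and 199.6 CPM with CAF-1 OFF and at 1.74 and 5.70 CPM with HOXA9 OFF (log2 ratio 6.03, SE 0.76, edgeR FDR 0.000482). Vpreb3 had 5.79 and 12.8 CPM with CAF-1 OFF against 1.09 and 0.546 CPM with HOXA9 OFF (log2 ratio 3.51, SE 0.48, edgeR FDR 0.000723). None of these 3 genes was called in CAF-1 OFF against uninduced cells (edgeR FDR 0.971, 0.861 and 0.977). Cd79a, a chain of the B cell receptor, held 15.5 and 15.3 CPM in CAF-1 OFF and 3.74 and 8.23 CPM in HOXA9 OFF libraries (log2 ratio 1.36, edgeR FDR 0.0193). Its call was lost without CAF-1 OFF replicate 1 (1.35), CAF-1 OFF replicate 2 (1.37) or HOXA9 OFF replicate 1 (0.89). The genes lower with CAF-1 OFF were Blnk, and Cd79b and Cd22, named after their values were seen. Blnk, an adaptor of B cell receptor signalling, was at 2.74 and 3.92 CPM with CAF-1 OFF and 8.41 and 63.3 CPM with HOXA9 OFF (log2 ratio -3.43, edgeR FDR 0.00965). Its log2 ratio was -1.34 without HOXA9 OFF replicate 2, and its call was lost without either CAF-1 OFF library. Cd79b, the other chain of the receptor, had 31.0 and 29.6 against 53.7 and 58.8 CPM (edgeR FDR 0.00277), and Cd22 0.842 and 0.523 against 0.977 and 7.89 CPM (edgeR FDR 0.0396). Without CAF-1 OFF replicate 1 the number of B cell genes called was 5 in place of 9.

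The Gimap genes, GTPases of immunity-associated proteins in 1 cluster on chromosome 6, were the list with the highest median. All 7 tested members of 8 were higher in CAF-1 OFF cells (median 5.78, or 5.56 with genes at the floor set to their bound). Against uninduced cells 4 were higher in CAF-1 OFF and 7 lower in HOXA9 OFF cells. Gimap4 was at 15.0 and 17.1 CPM with CAF-1 OFF, 0 in HOXA9 OFF and 1.11 and 0.898 CPM in uninduced libraries (at least 98.7-fold higher, with an edgeR FDR of 7.07e-05). Gimap8 was at 15.4 and 10.3 CPM against 0 in HOXA9 OFF libraries (at least 78.8-fold higher, with an edgeR FDR of 0.000275). Gimap7 was at 1.11 and 0.680 CPM against 0 (at least 5.48-fold higher, with an edgeR FDR of 0.00764). NK and cytotoxic genes were called on both sides, with 3 higher and 4 lower of 10 (30.0% and 40.0%, beside 22.2% and 21.4% of all tested genes). Their median was 1.00, of the opposite sign to the counts, or 0.45 over genes with a mean of at least 50 counts. With library size as the only scaling 6 were higher. Prf1, the pore-forming protein perforin, was at 9.05 and 17.7 CPM with CAF-1 OFF and at 3.74 and 2.23 CPM with HOXA9 OFF (log2 ratio 2.16, SE 0.49, edgeR FDR 0.00719), with its call lost without CAF-1 OFF replicate 2 (1.6). Nkg7, a granule membrane protein, had 35.1 and 30.7 CPM with CAF-1 OFF against 8.41 and 4.91 CPM with HOXA9 OFF (log2 ratio 2.30, SE 0.38, edgeR FDR 0.00174). The receptors Klrk1 and Klra17 were on the HOXA9 OFF side. Klrk1 held 0 and 0.157 CPM in CAF-1 OFF and 18.9 and 19.14 CPM in HOXA9 OFF libraries (at least 121-fold lower, with an edgeR FDR of 0.000247). Klra17 was at 1.053 and 2.77 CPM with CAF-1 OFF and at 38.3 and 66.6 CPM with HOXA9 OFF (log2 ratio -4.77, SE 0.52, edgeR FDR 0.000255). The defining NK genes Ncr1, Eomes and Gzmb did not pass the filter.

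**Figure D4:**
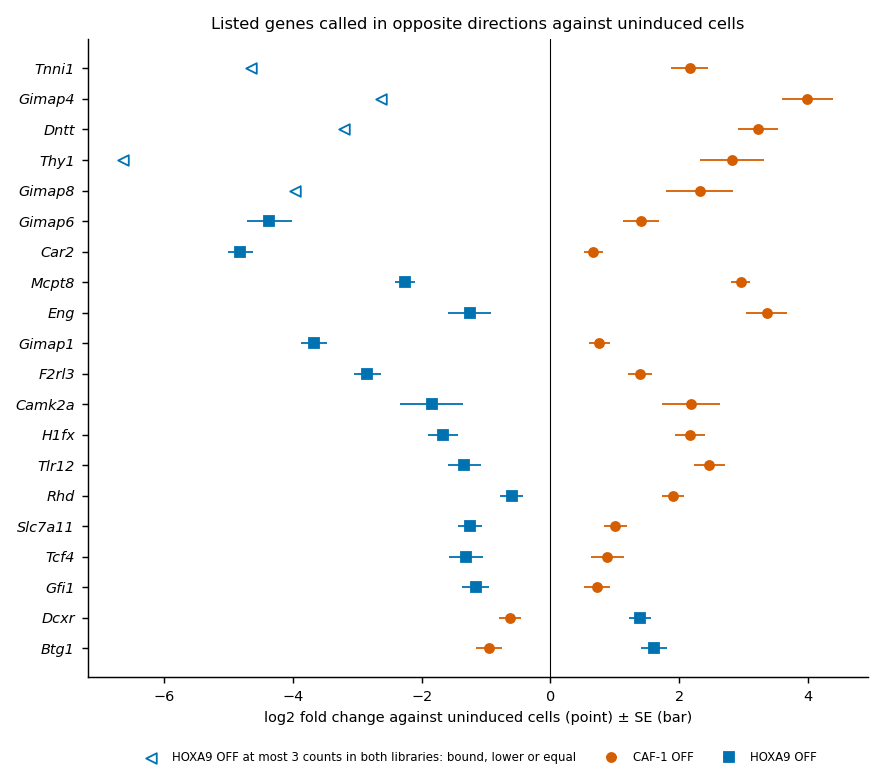
Log2 fold change against uninduced cells with its standard error in CAF-1 OFF (circles) and HOXA9 OFF cells (squares) for listed genes called in opposite directions in both comparisons, which share the uninduced libraries. Open triangles are bounds for genes with at most 3 counts in both HOXA9 OFF libraries, whose true value lies at the triangle or to its left. Most of these genes lie right of 0 in CAF-1 OFF and left of 0 in HOXA9 OFF cells, and Btg1 and Dcxr lie the other way.

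Many DNA replication genes were higher in CAF-1 OFF cells, and most of the list was below uninduced cells in HOXA9 OFF cells. Of 51 DNA replication genes 29 were higher and 0 lower with CAF-1 OFF (median 0.69), with 1 called higher than uninduced and 0 lower in CAF-1 OFF and 35 lower in HOXA9 OFF cells. Pold2, a subunit of DNA polymerase delta, had 119 CPM in both libraries with CAF-1 OFF against 40.6 and 36.8 CPM with HOXA9 OFF (log2 ratio 1.62, SE 0.11, edgeR FDR 3.97e-05). Gins2, of the replicative helicase, held 75.1 and 73.1 CPM in CAF-1 OFF and 36.5 and 27.2 CPM in HOXA9 OFF libraries (log2 ratio 1.22, SE 0.14, edgeR FDR 0.000364). Mcm2, a helicase subunit, was at 401 and 404 CPM with CAF-1 OFF and at 247 and 182 CPM with HOXA9 OFF (log2 ratio 0.91, SE 0.14, edgeR FDR 0.00139). Pcna and Mcm5 were under the limit (log2 ratio 0.37 and 0.39) and were called with library size as the only scaling (0.60 and 0.62), Mcm5 also without HOXA9 OFF replicate 1 (0.63). E2f1 had 71.7 and 74.4 CPM with CAF-1 OFF against 70.0 and 64.5 CPM with HOXA9 OFF (edgeR FDR 0.37). The letters TTTGGCGC, an E2F sequence, were in 16.7% of promoters of the list against 0.966% over tested genes.

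Of mitosis genes 29.8% were higher with CAF-1 OFF, against 22.2% of all tested genes, in a number that depended on the setting. Of 47 tested 14 were higher and 0 lower with CAF-1 OFF (median 0.48, or 0.29 without HOXA9 OFF replicate 2), but the number higher was 35 with library size as the only scaling, 31 without HOXA9 OFF replicate 1 and 3 without HOXA9 OFF replicate 2. Ccnb1, cyclin B1, held 89.6 and 83.0 CPM in CAF-1 OFF and 56.9 and 47.1 CPM in HOXA9 OFF libraries (log2 ratio 0.73, SE 0.13, edgeR FDR 0.00205). Cenpf, a kinetochore protein, was at 148 and 183 CPM with CAF-1 OFF and at 93.0 and 75.2 CPM with HOXA9 OFF (log2 ratio 0.98, SE 0.18, edgeR FDR 0.00267). Top2a, topoisomerase II, had 1038 and 1112 CPM with CAF-1 OFF against 718 and 539 CPM with HOXA9 OFF (log2 ratio 0.77, edgeR FDR 0.00386). Cdk1 held 228 and 222 CPM in CAF-1 OFF and 153 and 118 CPM in HOXA9 OFF libraries (log2 ratio 0.73, edgeR FDR 0.00586). Both calls were lost without HOXA9 OFF replicate 2 (0.57 and 0.54). Mki67, the proliferation antigen Ki-67, was at 425 and 458 CPM with CAF-1 OFF and at 453 and 331 CPM with HOXA9 OFF (edgeR FDR 0.435), and Plk1 was under the fold limit (0.55).

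Among controls of the G1 phase, cyclin D2, its kinase Cdk6 and the inhibitor p21 were higher in CAF-1 OFF cells, and Btg1, Btg2 and Ccng2 were higher in HOXA9 OFF cells. Of 18 cyclins, kinases and inhibitors tested 5 were higher and 5 lower with CAF-1 OFF (median -0.37, or -0.13 with library size as the only scaling, -0.13 over genes with a mean of at least 50 counts and -0.23 without CAF-1 OFF replicate 1). That was 27.8% on each side, near the 22.2% and 21.4% of all tested genes. Ccnd2, cyclin D2, had 377 and 392 CPM with CAF-1 OFF against 42.3 and 68.8 CPM with HOXA9 OFF (log2 ratio 2.79, SE 0.21, edgeR FDR 5.98e-05). Its kinase Cdk6 held 214 and 231 CPM in CAF-1 OFF and 51.7 and 59.1 CPM in HOXA9 OFF libraries (log2 ratio 2.01, SE 0.17, edgeR FDR 0.000102). Cdkn1a, the inhibitor p21, was at 57.8 and 69.4 CPM with CAF-1 OFF and at 11.6 and 23.8 CPM with HOXA9 OFF (log2 ratio 1.84, SE 0.33, edgeR FDR 0.00243), with 31.7 and 41.1 CPM in uninduced libraries. Btg1, an antiproliferative gene, had 37.1 and 40.1 CPM with CAF-1 OFF against 215 and 242 CPM with HOXA9 OFF (log2 ratio -2.56, SE 0.21, edgeR FDR 8.59e-05). With 85.8 and 64.1 CPM in uninduced libraries, it was below them in CAF-1 OFF and above them in HOXA9 OFF cells (edgeR FDR 0.0193 and 0.000359). Btg2 held 0 and 0.105 CPM in CAF-1 OFF and 3.58 and 8.53 CPM in HOXA9 OFF libraries (at least 38.4-fold lower, with an edgeR FDR of 0.00383). Ccng2, a cyclin of resting cells, was at 58.9 and 60.3 CPM with CAF-1 OFF and at 158 and 119 CPM with HOXA9 OFF (log2 ratio -1.22, SE 0.22, edgeR FDR 0.00263). Cdkn1b, the inhibitor p27, was just under the limit (-0.57, and -0.79 and called without HOXA9 OFF replicate 2).

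Of 27 p53 targets, 4 were higher and 8 lower with CAF-1 OFF, together 44.4% against 43.5% of all tested genes (median -0.47, or -0.23 with library size as the only scaling and -0.24 over genes with a mean of at least 50 counts), with 1 higher than uninduced in CAF-1 OFF and 11 in HOXA9 OFF cells. Phlda3, an inhibitor of AKT, had 11.9 and 6.06 CPM with CAF-1 OFF against 1.14 and 1.54 CPM with HOXA9 OFF (log2 ratio 2.74, SE 0.38, edgeR FDR 0.000718), and with Cdkn1a it was on the CAF-1 OFF side. Mdm2 and Bax, which restrain p53 and promote apoptosis, did not reach a call (log2 ratio -0.47 and -0.22, edgeR FDR 0.0226 and 0.456), Mdm2 being called at -0.60 without CAF-1 OFF replicate 2. Ccng1, cyclin G1, held 59.3 and 62.2 CPM in CAF-1 OFF and 90.9 and 94.8 CPM in HOXA9 OFF libraries (log2 ratio -0.61, edgeR FDR 0.00317). It was not called with library size as the only scaling (-0.38) or without CAF-1 OFF replicate 1 (-0.58).

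The replacement histone gene H3f3b and the linker histone gene H1fx rose in CAF-1 OFF cells. Of 27 genes of CAF-1, other histone chaperones and replacement histones, 11 were higher and 1 lower, the lower one being Chaf1b (median 0.50). H3f3b, which encodes the replication-independent histone H3.3, was at 509 and 461 CPM in uninduced and 510.3 and 437 CPM in IPTG-treated control libraries. It then was at 1284 and 1725 CPM with CAF-1 OFF and at 408 and 348 CPM with HOXA9 OFF (log2 ratio 1.99, SE 0.17, edgeR FDR 0.000102). The linker histone H1fx had 169.7 and 221 CPM with CAF-1 OFF against 16 and 11.4 CPM with HOXA9 OFF (log2 ratio 3.84, SE 0.26, edgeR FDR 4.02e-05), beside 50.5 and 36.3 CPM in uninduced and 49.5 and 40.4 CPM in IPTG-treated control libraries. H1fx was thus above the reference in CAF-1 OFF (edgeR FDR 0.00303) and below it in HOXA9 OFF cells (edgeR FDR 0.000675). H3f3b was above it in CAF-1 OFF (edgeR FDR 0.00289) and was not called in HOXA9 OFF cells (edgeR FDR 0.102). Nap1l1, a chaperone of H2A and H2B, held 431 and 414 CPM in CAF-1 OFF and 178 and 123 CPM in HOXA9 OFF libraries (log2 ratio 1.49, SE 0.19, edgeR FDR 0.000514). Asf1b, which hands H3 and H4 to CAF-1, was at 107 and 119 CPM with CAF-1 OFF and at 103 and 76.4 CPM with HOXA9 OFF (edgeR FDR 0.0869).

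Ribosome biogenesis genes were lower in HOXA9 OFF cells. Of 44 ribosome biogenesis genes 37 were higher and 0 lower with CAF-1 OFF (median 1.18). Of these genes 9 were below uninduced cells in CAF-1 OFF and 43 in HOXA9 OFF cells, and none was above in either. Polr1b, a subunit of RNA polymerase I, had 90.6 and 79.7 CPM with CAF-1 OFF against 21.6 and 20.3 CPM with HOXA9 OFF (log2 ratio 2.02, SE 0.11, edgeR FDR 2.66e-05). Nolc1, a nucleolar phosphoprotein, held 495 and 505 CPM in CAF-1 OFF and 132 and 130.2 CPM in HOXA9 OFF libraries (log2 ratio 1.93, SE 0.11, edgeR FDR 3.05e-05). Ncl, nucleolin, was at 2061 and 1999.8 CPM with CAF-1 OFF and at 787 and 704 CPM with HOXA9 OFF (log2 ratio 1.45, SE 0.11, edgeR FDR 6.96e-05). Uninduced cells had the highest level of both Polr1b (118 and 124 CPM) and Nolc1 (592 and 658 CPM), with CAF-1 OFF libraries below them and HOXA9 OFF libraries lowest. Npm1, nucleophosmin, which shares sequence with copies (84.9% of windows unique), had 647 and 544 CPM with CAF-1 OFF against 347 and 307 CPM with HOXA9 OFF (log2 ratio 0.87, SE 0.13, edgeR FDR 0.00128). Of 79 cytosolic ribosomal proteins, 10 were higher and 0 lower, so that 12.7% were called against 43.5% of all tested genes. The number higher was 20 with library size as the only scaling and 6 without HOXA9 OFF replicate 2. The median was 0.13, or 0.36 with library size as the only scaling, 0.20 without HOXA9 OFF replicate 1 and 0.04 without replicate 2. Rpl28 and Rpl36a had log2 ratios of 1.63 and 1.29 (edgeR FDR 0.000521 and 0.00444). The letters CCGGAAGT, an ETS sequence, were in 21.3% of ribosome biogenesis and 16.4% of ribosomal protein promoters, against 7.9% over tested genes. Over all called genes these letters were in 6.97% of promoters of genes higher in CAF-1 OFF cells and in 5.94% of those lower, both under that share.

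Many genes of the amino acid response driven by ATF4 were called lower than uninduced cells, more of them in HOXA9 OFF than in CAF-1 OFF cells. Some genes of the list were higher in CAF-1 OFF than in HOXA9 OFF cells. Of 32 genes 15 were below uninduced cells in CAF-1 OFF and 28 in HOXA9 OFF cells, and 15 were higher and 0 lower in CAF-1 OFF than in HOXA9 OFF cells (median 0.49, or 0.87 without HOXA9 OFF replicate 2). Slc7a11, the cystine transporter, held 295 and 358 CPM in CAF-1 OFF and 73.0 and 63.2 CPM in HOXA9 OFF libraries (log2 ratio 2.26, SE 0.19, edgeR FDR 9.17e-05). It lies on chromosome 3, 50168858 to 50247535 and was at 177 and 148 CPM in uninduced and 192 and 139 CPM in IPTG-treated control libraries. It was the exception of the list, above uninduced cells after CAF-1 loss (edgeR FDR 0.0125), and its promoter holds the ATF4 letters 66 and 47 bases before the start. Slc7a5, a transporter of large neutral amino acids, was at 278 and 293 CPM with CAF-1 OFF and at 56.5 and 55.2 CPM with HOXA9 OFF (log2 ratio 2.35, SE 0.13, edgeR FDR 2.88e-05). Psat1, of serine synthesis, had 1248 and 1075 CPM with CAF-1 OFF against 289 and 299.6 CPM with HOXA9 OFF (log2 ratio 1.98, SE 0.12, edgeR FDR 3.31e-05). Phgdh, the first enzyme of that path, with shared sequence (94.6% of windows unique), held 66.1 and 72.6 CPM in CAF-1 OFF and 14.2 and 28.2 CPM in HOXA9 OFF libraries (log2 ratio 1.71, SE 0.30, edgeR FDR 0.00219). Asns, asparagine synthetase, Mthfd2, of mitochondrial folate metabolism, and Ddit3, the stress factor CHOP, did not pass (log2 ratio 0.27, 0.26 and -0.09, edgeR FDR 0.129, 0.0701 and 0.801). Both Asns and Mthfd2 were below uninduced cells on either route. Trib3, a pseudokinase, was at 25.6 and 15.9 CPM with CAF-1 OFF and at 4.02 and 32.5 CPM with HOXA9 OFF (edgeR FDR 0.857), and was called at 2.36 without HOXA9 OFF replicate 2.

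**Figure D5:**
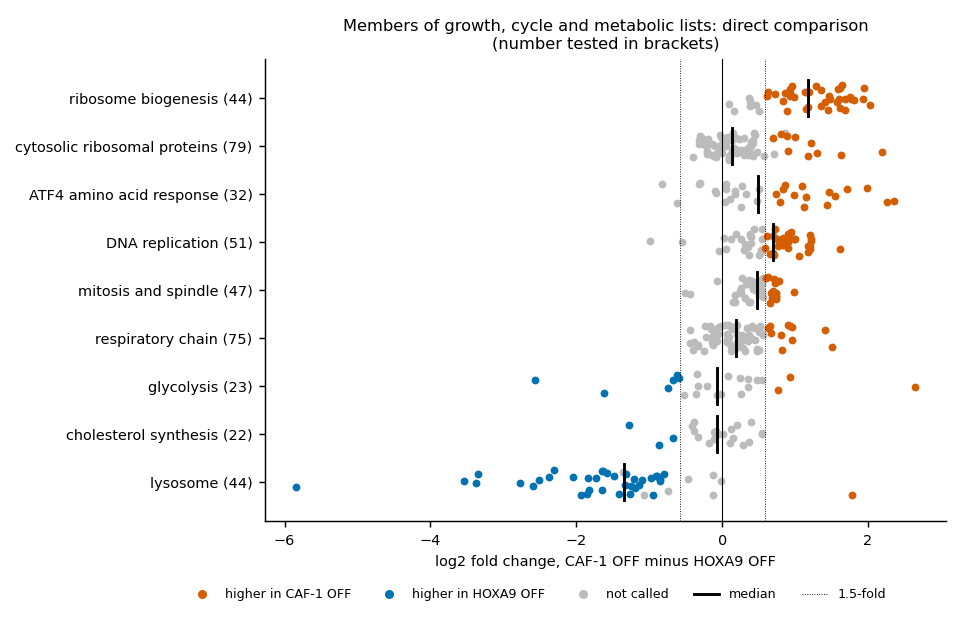
Log2 fold change of CAF-1 OFF over HOXA9 OFF cells for each tested member of 9 growth, cycle and metabolic lists (points, coloured where called), with the median of each list (black bar) and the 1.5-fold limits (dotted lines). Points of ribosome biogenesis lie to the right (median 1.18), those of the lysosome to the left (median -1.34), and cytosolic ribosomal proteins, the respiratory chain, glycolysis and cholesterol synthesis centre near 0.

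Of metabolic genes, 14.7% were called in the respiratory chain list, 13.6% in the cholesterol synthesis list and 39.1% in the glycolysis list, against 43.5% of all tested genes. Of 75 respiratory chain genes 11 were higher and 0 lower with CAF-1 OFF (median 0.19), or 24 higher with a median of 0.42 with library size as the only scaling. Ndufa12, a subunit of complex I, had 26.5 and 25.9 CPM with CAF-1 OFF against 7.92 and 10.5 CPM with HOXA9 OFF (log2 ratio 1.51, SE 0.18, edgeR FDR 0.000386). Of 23 glycolysis genes 3 were higher and 6 lower (median -0.07, which ran from -0.13 to 0.03 without 1 library and was 0.16 with library size as the only scaling), 5 and 2 with library size as the only scaling, and 6 higher without HOXA9 OFF replicate 2. Slc16a1, a lactate and pyruvate carrier, held 215 and 223 CPM in CAF-1 OFF and 38.5 and 31.3 CPM in HOXA9 OFF libraries (log2 ratio 2.65, SE 0.12, edgeR FDR 1.82e-05). Pfkfb4, which sets the level of a glycolytic activator, was at 12.7 and 13 CPM with CAF-1 OFF and at 82.3 and 69.5 CPM with HOXA9 OFF (log2 ratio -2.56, SE 0.15, edgeR FDR 2.92e-05). The hexokinases Hk2 and Hk3 had log2 ratios of -0.62 and -0.67 (edgeR FDR 0.00225 and 0.00603), not called with library size as the only scaling (-0.39 and -0.44), and Hk2 not without HOXA9 OFF replicate 1 (-0.53). Of 22 cholesterol synthesis genes 0 were higher and 3 lower (median -0.07, which ran from -0.14 to 0.07 without 1 library and was 0.16 with library size as the only scaling), 6 called with library size as the only scaling and 5 without CAF-1 OFF replicate 2 or HOXA9 OFF replicate 2. Mvd, of the mevalonate path, had 33.6 and 37.5 CPM with CAF-1 OFF against 81.2 and 91.8 CPM with HOXA9 OFF (log2 ratio -1.28, SE 0.11, edgeR FDR 0.00011).

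Of genes of tissues outside blood, few neuronal and germline genes passed the filter. The muscle genes that passed were mostly on the CAF-1 OFF side. Of 38 striated muscle genes 20 passed the filter, 11 higher and 2 lower with CAF-1 OFF (median 0.99, or 3.74 over genes with a mean of at least 50 counts). Of 34 neuronal genes 7 passed, 3 higher and 0 lower, and of 25 germline genes 8 passed, 2 higher and 1 lower, beside 22.2% and 21.4% of all tested genes. Tnni1, the slow muscle troponin I, was at 22.3 and 14.6 CPM with CAF-1 OFF, 0 in HOXA9 OFF cells and 3.96 and 4.28 CPM in uninduced libraries (at least 114-fold higher, with an edgeR FDR of 3.81e-05). Ryr2, the calcium channel of heart muscle, was at 0 in uninduced and 17.8 and 40.5 CPM in CAF-1 OFF libraries and 0 and 0.298 CPM in HOXA9 OFF libraries (log2 ratio 7.50, SE 0.90, edgeR FDR 0.000637). Its fitted value was 12.11 without HOXA9 OFF replicate 2, since the other library held 0 counts. Nefh, the heavy neurofilament, held 82.6 and 64.0 CPM in CAF-1 OFF and 2.28 and 3.87 CPM in HOXA9 OFF libraries (log2 ratio 4.57, SE 0.30, edgeR FDR 3.94e-05). Camk2a, a calmodulin kinase, was at 26.3 and 11 CPM with CAF-1 OFF and at 1.03 and 1.24 CPM with HOXA9 OFF (log2 ratio 4.03, SE 0.51, edgeR FDR 0.00049). Uninduced libraries had 54.2 and 70.2 CPM of Nefh and 3.07 and 5.13 CPM of Camk2a. Ryr2 was thus seen after CAF-1 loss, while Nefh was already present in uninduced cells and was called lower in HOXA9 OFF cells (edgeR FDR 2.73e-05) and not in CAF-1 OFF cells (edgeR FDR 0.52). Tex19.1, a germline gene, was at 0.842 and 3.03 CPM with CAF-1 OFF and 0 in HOXA9 OFF and uninduced cells (at least 11.9-fold higher, with an edgeR FDR of 0.0114). Its call was lost by DESeq2 (7.65 on the log2 scale, a fitted value) and without CAF-1 OFF replicate 2.

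Among abundant genes, those with a mean of at least 5 on the log2 CPM scale over the 4 libraries compared, the 10 lowest in CAF-1 OFF relative to HOXA9 OFF cells were Ngp, Olfm4, Stfa1, S100a9, Epx, Ctss, S100a8, Clec4a2, Csf1r and Fam101b, all but Fam101b granule and phagocyte genes described above. The 10 highest were Tgm3, Flt3, Mcpt8, Hlf, Samd4, Muc13, H1fx, Calcrl, Tgm1 and Cnn3, of which 4 belong to lists. Tgm3 and Tgm1, transglutaminases that crosslink proteins, were both among them. Tgm3 had 215 and 375 CPM with CAF-1 OFF against 4.34 and 4.51 CPM with HOXA9 OFF (log2 ratio 6.06, SE 0.30, edgeR FDR 2.22e-05). Tgm1 held 108 and 339.5 CPM in CAF-1 OFF and 20.4 and 15.4 CPM in HOXA9 OFF libraries (log2 ratio 3.65, SE 0.52, edgeR FDR 0.000838). In uninduced cells Tgm3 was at 7.74 and 6.29 CPM and Tgm1 at 25.1 and 17.2 CPM. Muc13, a membrane mucin of progenitors, was at 189 and 118 CPM with CAF-1 OFF and at 12 and 8.43 CPM with HOXA9 OFF (log2 ratio 3.91, SE 0.37, edgeR FDR 0.000142), with 77.3 and 121 CPM in uninduced libraries. Calcrl, the receptor for adrenomedullin and calcitonin gene-related peptide, had 339 and 275 CPM with CAF-1 OFF against 18.4 and 27.6 CPM with HOXA9 OFF (log2 ratio 3.74, SE 0.26, edgeR FDR 4.48e-05), with 194 and 170.2 CPM in uninduced libraries. Samd4 held 202 and 199 CPM in CAF-1 OFF and 10.9 and 6.40 CPM in HOXA9 OFF libraries (log2 ratio 4.54, SE 0.23, edgeR FDR 2.34e-05). On the other side Fam101b was at 3.21 and 8.99 CPM with CAF-1 OFF and at 329.7 and 205 CPM with HOXA9 OFF (log2 ratio -5.45, SE 0.46, edgeR FDR 9.15e-05).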

How the data were processed

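RNA from 8 iGMP libraries was prepared with an NEB kit that keeps strand and sequenced on a HiSeq machine. Per the submitters' processing notes, the authors aligned reads to mm9 with STAR and counted them per gene with HTSeq, and deposited 1 table of raw counts per library. The gene annotation and whether counting used strand are not given in the sources used here, so overlapping and antisense genes may share reads. HTSeq summary lines were left out of library sizes and tests. Of uniquely aligned reads, from 5.3% to 7.79% lay on no feature in 7 libraries, against 14.642% in the first IPTG-treated control.

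Counts of 34199 genes were filtered with filterByExpr (13080 tested), scaled by TMM (factors 1.059 and 1.055 in CAF-1 OFF, 0.8945 and 0.9052 in HOXA9 OFF libraries) and fitted over all 8 libraries with edgeR 4.0.16 in R 4.3.3 by the quasi-likelihood test, 1 mean per group. The biological coefficient of variation was 18.9%. P-values were adjusted over all tested genes (Benjamini-Hochberg) and genes past an FDR of 0.05 with at least a 1.5-fold change were called. The SE is the absolute log2 ratio over the square root of F. Folds against groups of at most 3 counts per library are bounds at that floor. Simulated counts over 12773 genes, with 200 changed, gave calls for 49.5% of genes changed by 1 and 75.3% of those changed by 2 on the log2 scale, 0 in the wrong direction. In the same simulation 9 unchanged genes were called. Alternatives used DESeq2 1.42.0, other scaling and filters, a stricter limit, the 4 libraries alone, a replicate block and each library left out.

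The comparison, gene lists and named genes were chosen with earlier results of these data known. Lists held 1143 entries, of which 1134 matched by symbol, 5 by RefSeq synonym and 4 not at all. Genes named were those marked in the lists, up to 3 further called members per list with the largest change and no overlap, and the 10 highest and 10 lowest calls among abundant genes. Some of the named genes are not reported here, although they count in the numbers given for lists. Shared sequence was measured as the share of 50-base windows of a gene's longest coding transcript found in no other gene's transcripts. Replicates are separate libraries, so p-values measure the spread between these libraries, which may be technical.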

Additional observations from a re-analysis of the deposited data

Results flagged for a closer look

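Named genes are given here because their calls against uninduced cells had opposite directions after loss of CAF-1 and of HOXA9, so that a difference in the direct comparison follows from how they were chosen and its size is a description. Both comparisons share the uninduced libraries. The values are log2 ratios of CAF-1 OFF over HOXA9 OFF, or the lowest fold that the floor of 3 counts per library allows.

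The antiproliferative gene Btg1 was lower after CAF-1 loss, with a log2 ratio of -2.56. The others were higher. Of genes of erythroid, megakaryocyte and basophil cells, Car2 had a log2 ratio of 5.49, Mcpt8 of 5.22, Eng of 4.62 and F2rl3 of 4.24. Of genes of lymphoid cells, Thy1 was at least 708-fold, Gimap4 at least 98.7-fold, Dntt at least 86.9-fold and Gimap8 at least 78.8-fold higher. Among genes of other tissues, Tnni1 of slow muscle was at least 114-fold higher and Camk2a had a log2 ratio of 4.03. The linker histone gene H1fx had a log2 ratio of 3.84, the cystine transporter gene Slc7a11 of 2.26 and the repressor gene Gfi1 of 1.89.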

How the results depend on the processing

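With edgeR, 5695 genes were called between CAF-1 OFF and HOXA9 OFF cells, 2898 higher and 2797 lower after CAF-1 loss. An FDR of 0.01 with a 2-fold limit gave 3008, of which 1467 were higher and 1541 lower. Library size as the only scaling gave 3949 higher and 2064 lower, so that 65.67% of calls were higher in place of 50.89%, and the median over all genes was 0.27 in place of 0.04. Leaving out 1 library gave from 4832 to 5644 calls, from 2446 to 2885 higher and from 2345 to 2800 lower; the lone library left in a group is then assumed to vary like the others. No call changed direction in any of these fits. The other alternatives stayed within 1.5 times of these counts. Over all alternatives, 174 values of single named genes lost the call, 30 gained one and 1, of Vwf, which was called, changed sign. In 3861 the call was as before, among them 26 values of uncalled genes that changed sign. Vwf ranged from -5.33 without HOXA9 OFF replicate 1 to 1.02 without HOXA9 OFF replicate 2. Of 219 called named genes, 181 kept the call without any single library. Of counts over lists, 136 moved by over 1.5 times and 1688 by less. The filter on low counts limits some lists, such as the neuronal list, with 27 of 34 genes not tested, and the T cell list, with 15 of 32. Some of these genes, such as Syt1 and Cd3e, had 0 counts in every library. A role of sequencing depth was not tested.

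The replicate number is not stated to mark a shared culture. Deviations of same-numbered CAF-1 OFF and HOXA9 OFF libraries had a correlation across genes of 0.076. For the groups set against uninduced cells it was -0.044 with CAF-1 OFF, 0.301 with HOXA9 OFF and 0.475 with IPTG-treated control libraries, and it was 0.316 between HOXA9 OFF and IPTG-treated control and -0.017 between CAF-1 OFF and IPTG-treated control libraries, so same-numbered libraries of the groups other than CAF-1 OFF deviated together. With the replicate block 5839 genes were called, 2981 higher and 2858 lower, among them 5645 of the 5695.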
